A study of Arabidopsis thaliana with 14 samples.

Results

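The comparison described here sets ft-10 Arabidopsis thaliana rosette leaves taken 168 h after injection of a silk microneedle loaded with 15 mM GA3 (2 libraries) against leaves of untreated ft-10 plants taken at 0 h (3 libraries), 5 of the 14 RNA-seq libraries of the series, chosen by their labels. All plants carried ft-10, a lesion in FT, the gene of the mobile flowering signal, and were grown on soil at 22 °C under 16 h light and 8 h dark with about 100 µmol m-2 s-1 of light, being 30 days old at injection. The other groups were GA3 needles sampled at 3 h, GA3 needles sampled at 24 h and mock needles without GA3 sampled at 24 h, with 3 libraries each, and needles were taken out before leaves were frozen. The series asked what a silk needle can deliver into a plant, and the 168 h leaves are its last time point. No mock or untreated plant of the same age was sampled at 168 h, so the effects of GA3, of the needle and of 168 h of further growth cannot be told apart in this comparison. The design text calls the replicates biological; the sources used here do not say how many leaves or plants went into each library.

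Gibberellins are growth hormones that bind GID1 receptors and lead to the loss of DELLA proteins, which are repressors of growth. Plants hold their level steady by turning down synthesis genes and turning up inactivating enzymes when gibberellin is plentiful. In rosette leaves gibberellin promotes cell expansion and helps to start flowering. A leaf that grows old breaks down chlorophyll and exports its nitrogen.

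Library sizes were alike, at 20448913 to 26537437 reads over the series. The 10 most abundant genes held 5.25% and 4.67% of reads at 168 h, against 7.52, 9.05 and 9.21% in untreated leaves. CPM is the reads of a gene scaled to the library's total in tested genes times its TMM normalisation factor. The first principal component of log2 CPM, with 32.2% of the variance, placed the 168 h libraries at 90.1 and 108. The other 12 libraries lay between -49.8 and 25.6. Untreated library 1 stood apart from its group, since its counts differed from those of libraries 2 and 3 by a chi-square per degree of freedom of 138 and 134, against 19.3 between libraries 2 and 3 and 99.9 between the 168 h libraries. FT (AT1G65480), the gene with the ft-10 lesion, had 8.41 and 6.3 CPM at 168 h, against 4.65, 4.35 and 3.39 CPM in untreated leaves (log2 fold change 0.83 ± 0.45, adjusted p = 0.179) and did not pass the test; every group carries the lesion, so its level checks no label. A value that changed by over 1.5 times, or a call that ended, when 1 library was left out or another method used is given beside the result, except under a replicate block, whose effect stands at the end. For genes with 0 to 3 reads in a group the counting interval, or the bound against a floor of 3 counts, takes the place of the fitted fold. The bound of a gene with no read in a group shrinks by construction when a library of that group is left out, and such values are not printed. Leaving out a 168 h library leaves 1, which is assumed to vary like the other groups. Most named genes were picked by small p or by groups that do not overlap. Where their libraries lie apart, this follows from the choice and adds no support.

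**Figure D1:**
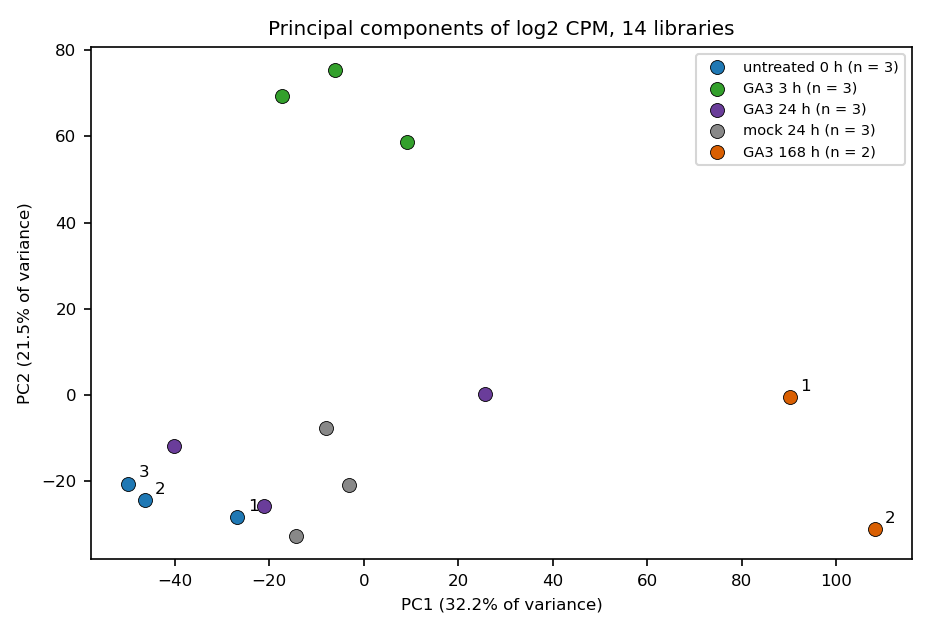
Each point is a library, placed by its first principal component (x, 32.2% of variance) and second (y, 21.5%) of log2 CPM, coloured by group; numbers mark the replicates of the GA3 168 h and untreated groups. The GA3 168 h libraries lie at 90.1 and 108 on the first component, beyond all others.

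Leaves 168 h after the GA3 needle held less RNA than untreated leaves for photosynthesis (28 of 28 light-reaction genes called lower, where 16.1% of all tested genes were), for making chlorophyll (11 of 16), and for loosening cell walls (9 of 17 expansins). They held more for sulfur uptake and assimilation (14 of 16 genes called higher, where 15.1% of all were), aliphatic glucosinolates (14 of 15), the response to abscisic acid, drought and cold (12 of 27) and chlorophyll breakdown (6 of 8). Among gibberellin genes, the synthesis gene GA3OX1 was lower, 1 of 8 tested, where the median log2 fold change was 0.15. The inactivating genes GAMT2 and GA2OX2 were higher, 2 of 4 tested, and 7 of the 11 inactivating genes were too low to test. Without GA3 168 h library 2 the counts for these 7 lists were 17, 7, 0, 12, 10, 8 and 3 in the same order, and GA2OX2 was not called; without library 1 GA3OX1 was not called. Of 20077 genes tested, 3035 were called higher at 168 h (15.1%) and 3237 lower (16.1%), where called means an adjusted p under 0.05 in edgeR's quasi-likelihood test. For lists below without a printed share, these percentages are the ones to set beside their counts against untreated leaves. Among them 951 were at least 4-fold higher and 1192 at least 4-fold lower, and the median log2 fold change of all tested genes was 0.0127. With total counts in place of TMM factors the calls were 4106 higher and 2410 lower, a share of 63% higher instead of 48.4%, and the median of all genes moved to 0.21. Calls numbered 2108 higher and 2476 lower without GA3 168 h library 1, and 1181 higher and 1330 lower without library 2. Leaving out an untreated library gave 2042 to 3071 higher and 2359 to 3271 lower. In a fit of these 5 libraries alone 2102 were higher and 2091 lower.

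The largest rise among genes with a symbol was that of PAP1 (AT1G56650), a MYB factor that switches on anthocyanin synthesis (chromosome 1, 21233555 to 21235292, minus strand, TAIR10.1). It had 30.5 and 72.1 CPM at 168 h, against 0.0885, 0.0444 and 0 CPM in untreated leaves (371- to 5274-fold higher by the 95% counting interval, adjusted p = 0.000699). Its close relative PAP2 (MYB90, AT1G66390) had 4.33 and 8.73 CPM at 168 h, against 0.133, 0 and 0 CPM in untreated leaves (47- to 675-fold higher by the 95% counting interval, adjusted p = 0.00196). Both were close to 0 in every untreated library and present in both 168 h libraries. PYD4 (AT3G08860), an aminotransferase of pyrimidine breakdown, had 715 and 1419 CPM at 168 h, against 3.94, 6.08 and 4.99 CPM in untreated leaves (log2 fold change 7.74 ± 1.73, adjusted p = 0.00681). GOLS2 (AT1G56600), galactinol synthase of the raffinose pathway that protects dry or cold tissue, had 469 and 328 CPM at 168 h, against 2.52, 1.42 and 1.8 CPM in untreated leaves (log2 fold change 7.70 ± 0.98, adjusted p = 0.000617). LSU1 (AT3G49580), a small protein made under sulfur shortage, had 331 and 533 CPM at 168 h, against 2.12, 4.17 and 2.02 CPM in untreated leaves (log2 fold change 7.28 ± 1.01, adjusted p = 0.000775). These 3 were already measurable in untreated leaves, and no 168 h library came near the untreated range. SDI1 (AT5G48850), a sulfur-deficiency protein that holds back glucosinolate synthesis, had 525 and 774 CPM at 168 h, against 7.97, 5.1 and 3.5 CPM in untreated leaves (log2 fold change 6.87 ± 0.91, adjusted p = 0.000699). BGLU28 (AT2G44460), a beta-glucosidase tied to glucosinolate breakdown in sulfur shortage, had 34.3 and 52.7 CPM at 168 h, against 0.221, 0.71 and 0.424 CPM in untreated leaves (log2 fold change 6.57 ± 1.05, adjusted p = 0.00208).

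The other large rises were lower in level. UMAMIT36 (AT1G70260), of the UMAMIT family of amino acid transporters, had 23.2 and 12.1 CPM at 168 h and 0.0885, 0 and 0 CPM in untreated leaves (156- to 4687-fold higher by the 95% counting interval). NUDT24 (AT5G19470), a nudix hydrolase, had 75 and 162 CPM at 168 h and 0.133, 0.71 and 0.689 CPM in untreated leaves (log2 fold change 7.86 ± 1.35). CHAT (AT3G03480), which makes the green-leaf ester hexenyl acetate, had 11.1 and 24.8 CPM at 168 h and 0, 0.178 and 0.477 CPM in untreated leaves (log2 fold change 6.39 ± 1.46). The 168 h libraries of LAC7 (AT3G09220), a laccase, and DXPS1 (AT3G21500), named for the first step of the plastid isoprenoid pathway, differed more between themselves. LAC7 had 3.49 and 43 CPM at 168 h and 0.0443, 0.0888 and 0 CPM in untreated leaves (167- to 2372-fold higher by the 95% counting interval). DXPS1 had 52.1 and 10.2 CPM at 168 h and 0.0443, 0 and 0.477 CPM in untreated leaves (log2 fold change 7.55 ± 1.56). LAC7 was higher in library 2 and DXPS1 in library 1. Among genes without a symbol, AT4G38340, of the RWP-RK family of plant regulators, had 51.6 and 81.9 CPM at 168 h and 0.62, 0.222 and 0.265 CPM in untreated leaves (log2 fold change 7.46 ± 1.10). AT3G22560, annotated as an acyl-CoA N-acyltransferase, had 7.32 and 7.47 CPM at 168 h and 0.0885, 0 and 0 CPM in untreated leaves (65- to 1961-fold higher by the 95% counting interval). AT2G44240, a protein of the DUF239 family, had 50.1 and 16.5 CPM at 168 h and 0.531, 0.0888 and 0.212 CPM in untreated leaves (log2 fold change 6.87 ± 1.51). LAC7 (adjusted p = 0.0724), DXPS1 (8.07) and CHAT (7.05) were not called with limma-voom. PAP1 was 222- to 3159.8-fold higher without GA3 168 h library 2 and 378- to 83331-fold higher without untreated library 1. PAP2 was at least 89.6-fold higher without untreated library 1 and 30.4- to 438-fold higher without untreated library 2. UMAMIT36 was at least 244-fold higher without untreated library 1 and 101- to 3036-fold higher without untreated library 2. LAC7 was 313- to 4451-fold higher without GA3 168 h library 1, 24.6- to 368-fold higher without GA3 168 h library 2 and 170.0- to 37534-fold higher without untreated library 2. AT3G22560 was at least 102-fold higher without untreated library 1 and 42.1- to 1270.2-fold higher without untreated library 2. For NUDT24 (7.15), PYD4 (7.11), DXPS1 (8.24) and CHAT (5.65) the log2 fold change moved without GA3 168 h library 2, and for CHAT (5.77), AT4G38340 (8.05) and AT2G44240 (7.74) without untreated library 1, and for DXPS1 (5.92) and AT2G44240 (5.85) without GA3 168 h library 1. For DXPS1 (6.94) the log2 fold change moved without untreated library 2, and for DXPS1 (10.12) and CHAT (7.57) without untreated library 3.

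The largest fall of an abundant gene was that of AT2G10940 (chromosome 2, 4310321 to 4312162, minus strand), annotated as a protein of the lipid-transfer and 2S albumin superfamily. It had 0.042 and 0.174 CPM at 168 h, against 1041, 998 and 959 CPM in untreated leaves (log2 fold change -13.11 ± 1.27, adjusted p = 0.000339), and its 168 h libraries held 5 reads in all, against 64095 in untreated leaves. CWLP (AT3G22120), a proline-rich linker between cell wall and plasma membrane, had 1.68 and 0.434 CPM at 168 h, against 263, 150.0 and 129 CPM in untreated leaves (log2 fold change -7.40 ± 0.88, adjusted p = 0.000513). Near it on chromosome 3, AT3G22142, of the same superfamily as AT2G10940, had 0 and 0 CPM at 168 h and 15.1, 7.9 and 9.12 CPM in untreated leaves (at least 168-fold lower), a bound that grants the group at 0 a floor of 3 counts in all. Reads that fit several related genes of this kind were counted for none of them, so their single values are uncertain. DGR2 (AT5G25460), a cell wall protein of the DUF642 family, had 1.77 and 0.174 CPM at 168 h, against 96.3, 132 and 152 CPM in untreated leaves (log2 fold change -7.01 ± 1.03, adjusted p = 0.00102). TBL45 (AT2G30010), of the family of polysaccharide O-acetyltransferases, had 1.01 and 0.0434 CPM at 168 h, against 36.8, 75.4 and 80 CPM in untreated leaves (log2 fold change -6.90 ± 1.02, adjusted p = 0.00103). Both were near 0 in 168 h library 2 and low in library 1.

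Several regulators fell as far. BZIP61 (AT3G58120), a bZIP transcription factor, had 0.0841 and 0.347 CPM at 168 h and 35.3, 49.1 and 26.9 CPM in untreated leaves (log2 fold change -7.40 ± 1.21). ULT1 (AT4G28190), a trithorax-type developmental regulator, had 0.042 and 0.174 CPM at 168 h and 15.8, 13.2 and 14.1 CPM in untreated leaves (log2 fold change -6.99 ± 1.18). HB-7 (AT5G46880), listed as homeobox-7 in the annotation, had 0.126 and 0 CPM at 168 h and 2.97, 7.72 and 8.17 CPM in untreated leaves (32.7- to 469-fold lower by the 95% counting interval). Both 168 h libraries were close to 0 in each of them. SLAH2 (AT4G27970), a homologue of the guard cell anion channel SLAC1, had 0.294 and 0.0434 CPM at 168 h and 14.5, 16.2 and 38.2 CPM in untreated leaves (log2 fold change -7.03 ± 0.98). PP2-A5 (AT1G65390), a phloem-type lectin, had 0 and 0.0869 CPM at 168 h and 7.52, 2.8 and 6.52 CPM in untreated leaves (35.8- to 1079-fold lower by the 95% counting interval). CYP78A8 (AT1G01190), a cytochrome P450, had 0 and 0 CPM at 168 h and 9.56, 6.61 and 9.71 CPM in untreated leaves (at least 134-fold lower). AT4G34770, a SAUR-like auxin-responsive gene, had 0 and 0 CPM at 168 h and 10.6, 8.61 and 12.2 CPM in untreated leaves (at least 162-fold lower). The last 2 had no read in either 168 h library. The remaining 3 of the 12 largest falls rested on unequal untreated libraries. LTL1 (AT3G04290), a GDSL lipase, had 0 and 0 CPM at 168 h, against 5.4, 136 and 159 CPM in untreated leaves (at least 1506-fold lower, adjusted p = 0.0109), with untreated library 1 far below the other untreated libraries. PDF1 (AT2G42840), a cell wall protein of the epidermis, had 0 and 0 CPM at 168 h, against 16, 1.95 and 0.955 CPM in untreated leaves (at least 103-fold lower, adjusted p = 0.0304), and XTH17 (AT1G65310), a xyloglucan-modifying enzyme with near copies in the genome, had 0 and 0 CPM at 168 h, against 15.3, 0.666 and 0.159 CPM in untreated leaves (at least 88.5-fold lower, adjusted p = 0.0316). In the last 2 untreated library 1 was the high one. LTL1 (adjusted p = 0.349), PDF1 (adjusted p = 0.147), XTH17 (adjusted p = 0.286), BZIP61 (-7.53) and PP2-A5 (adjusted p = 0.105) were not called with limma-voom, nor were LTL1 (adjusted p = 0.0544), PDF1 (adjusted p = 0.112), XTH17 (adjusted p = 0.116) and PP2-A5 (adjusted p = 0.0568) without GA3 168 h library 1, nor were LTL1 (adjusted p = 0.0726), PDF1 (adjusted p = 0.136) and XTH17 (adjusted p = 0.14) without GA3 168 h library 2. PDF1 (adjusted p = 0.0613) and XTH17 (adjusted p = 0.128) were not called in a fit of these 5 libraries alone, nor were PDF1 (adjusted p = 0.0582) and XTH17 (adjusted p = 0.0781) without untreated library 1. HB-7 was at least 47.4-fold lower without GA3 168 h library 1 and 16.6- to 238-fold lower without GA3 168 h library 2. PP2-A5 was 17.6- to 531-fold lower without GA3 168 h library 1 and at least 44.1-fold lower without GA3 168 h library 2. LTL1 was at least 2283-fold lower without untreated library 1. PDF1 was at least 23.4-fold lower without untreated library 1. XTH17 was at least 6.79-fold lower without untreated library 1. For CWLP (-8.68), BZIP61 (-6.72), SLAH2 (-8.87), DGR2 (-9.47), ULT1 (-6.33), TBL45 (-10.35) and AT2G10940 (-12.45) the log2 fold change moved without GA3 168 h library 1, and for CWLP (-6.79), BZIP61 (-8.73), SLAH2 (-6.30), DGR2 (-6.21), ULT1 (-8.27), TBL45 (-6.03) and AT2G10940 (-14.39) without GA3 168 h library 2.

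**Figure D2:**
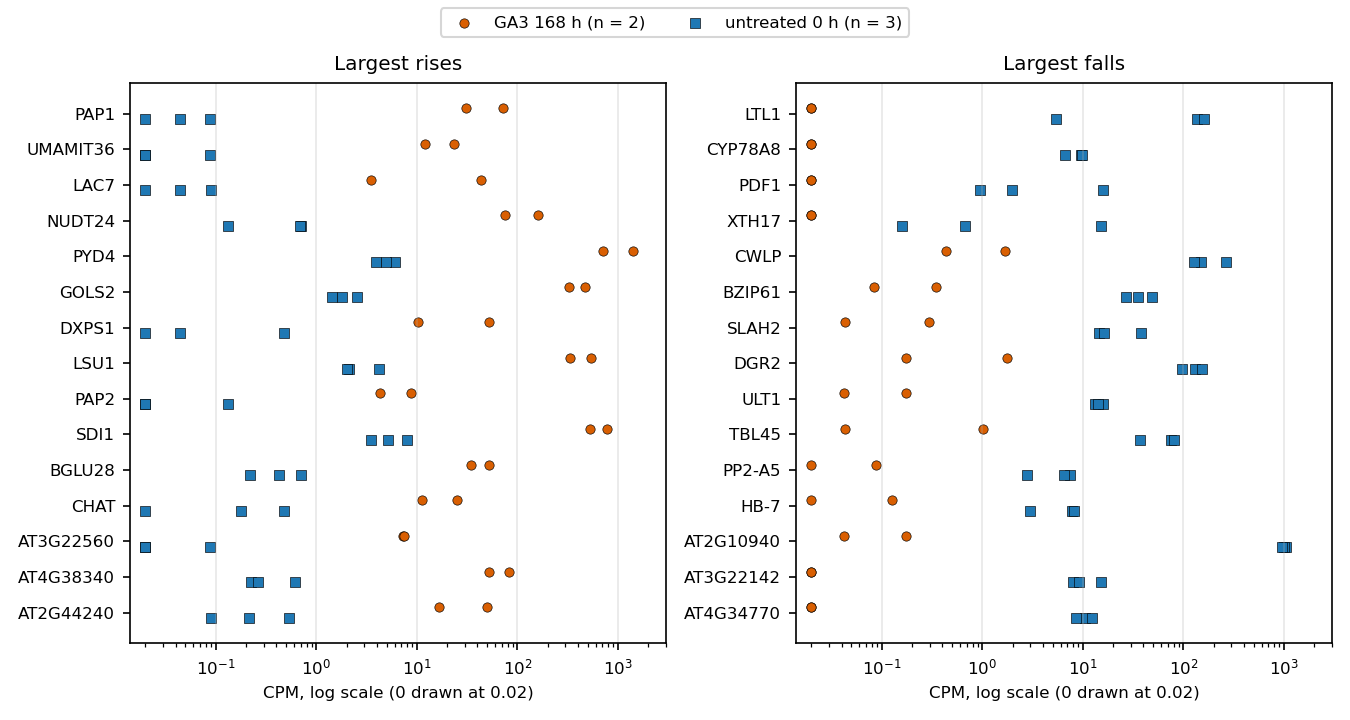
Each row is a gene and each point a library's CPM on a log axis (0 drawn at 0.02), with GA3 168 h as circles above and untreated as squares below; the left panel holds the 15 largest rises and the right panel the 15 largest falls. The rows were chosen among genes whose groups do not overlap. AT2G10940 has 0.042 and 0.174 CPM at 168 h and 1041, 998 and 959 CPM in untreated leaves, and XTH17, PDF1 and LTL1 have untreated libraries that differ widely.

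Genes of the light reactions of photosynthesis were lower at 168 h without exception among those listed: 28 of 28 tested genes were called lower and 0 higher, and the median log2 fold change was -1.59, with single values from -4.69 to -0.84, where 16.1% of all tested genes were called lower. LHCB1.3 (AT1G29930), which encodes the main light-harvesting protein of photosystem II, had 2548 and 2258 CPM at 168 h, against 13779.8, 16168 and 17415 CPM in untreated leaves (log2 fold change -2.72 ± 0.36, adjusted p = 0.000699). PSAK (AT1G30380), a subunit of photosystem I, had 469 and 338 CPM at 168 h, against 1345, 1535 and 1585 CPM in untreated leaves (log2 fold change -1.88 ± 0.29, adjusted p = 0.00121). LHCB4.1 (AT5G01530), a minor antenna protein of photosystem II, had 1326 and 1102 CPM at 168 h, against 3772, 4186 and 4024 CPM in untreated leaves (log2 fold change -1.72 ± 0.26, adjusted p = 0.00126). Both 168 h libraries lay well under all 3 untreated libraries in each of these genes, which were picked by small p. LHCA2 (AT3G61470), an antenna protein of photosystem I, had 1193 and 1027 CPM at 168 h and 2990.1, 3489 and 3506 CPM in untreated leaves (log2 fold change -1.58 ± 0.25), and PSAG (AT1G55670), another subunit of photosystem I, had 556 and 426 CPM at 168 h and 1603, 1700.1 and 1717 CPM in untreated leaves (log2 fold change -1.77 ± 0.28). LHCB1 genes are near-identical copies. Reads that fit several places were counted for no gene, so the level of each copy is uncertain. Of the light-reaction genes, 17 were called lower without GA3 168 h library 2.

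The Calvin cycle, which fixes carbon dioxide, was lower too: 14 of 18 tested genes were called lower and 0 higher, and the median log2 fold change was -1.13. RBCS3B (AT5G38410), a small subunit gene of Rubisco, had 924 and 635 CPM at 168 h, against 6068, 6744 and 5664 CPM in untreated leaves (log2 fold change -2.98 ± 0.35, adjusted p = 0.00049). RBCS1A (AT1G67090), the most abundant of the 3 small subunit genes named here, had 5348 and 2905 CPM at 168 h, against 13586, 16451 and 15099.9 CPM in untreated leaves (log2 fold change -1.87 ± 0.35, adjusted p = 0.00288). RBCS2B (AT5G38420) had 378 and 136 CPM at 168 h and 3128, 4900.2 and 4202 CPM in untreated leaves (log2 fold change -3.99 ± 0.51). The small subunit genes are near copies of each other and their single values are uncertain, but all 3 lay below the untreated range in both 168 h libraries. GAPA-2 (AT1G12900), a glyceraldehyde-3-phosphate dehydrogenase subunit, had 482 and 281 CPM at 168 h and 1462, 1992 and 1721 CPM in untreated leaves (log2 fold change -2.18 ± 0.39), and PGK1 (AT3G12780), phosphoglycerate kinase, had 757 and 442 CPM at 168 h and 1622, 1918 and 1805 CPM in untreated leaves (log2 fold change -1.57 ± 0.28). Of the Calvin cycle genes, 8 were called lower in a fit of these 5 libraries alone, and 6 without GA3 168 h library 2. For RBCS2B (-4.92) the log2 fold change moved without GA3 168 h library 1.

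Chlorophyll synthesis and chlorophyll breakdown moved in opposite directions. Of the synthesis list, 11 of 16 tested genes were called lower and 0 higher, and the median log2 fold change was -1.36. HEMA1 (AT1G58290), glutamyl-tRNA reductase at the entry of the pathway, had 234 and 192 CPM at 168 h, against 734, 853 and 836 CPM in untreated leaves (log2 fold change -1.92 ± 0.30, adjusted p = 0.00126). CHLI2 (AT5G45930), a magnesium chelatase subunit, had 13.8 and 8.47 CPM at 168 h and 43.8, 64.4 and 58.2 CPM in untreated leaves (log2 fold change -2.31 ± 0.39). PCB2 (AT5G18660), divinyl reductase, had 9.29 and 2.39 CPM at 168 h and 62, 72 and 69.9 CPM in untreated leaves (log2 fold change -3.54 ± 0.57). GSA1 (AT5G63570), which makes aminolevulinate, and CHLM (AT4G25080), a methyltransferase of the magnesium branch, fell less. GSA1 had 80.7 and 57.2 CPM at 168 h and 146, 134 and 131 CPM in untreated leaves (log2 fold change -0.99 ± 0.20). CHLM had 109 and 94.5 CPM at 168 h and 215, 364 and 359 CPM in untreated leaves (log2 fold change -1.62 ± 0.33). Of the breakdown list, 6 of 8 tested genes were called higher and 0 lower, and the median log2 fold change was 1.17, where 15.1% of all tested genes were called higher. NYE1 (AT4G22920), the stay-green protein that takes magnesium out of chlorophyll, had 80.9 and 96.8 CPM at 168 h, against 30.7, 24.7 and 20.3 CPM in untreated leaves (log2 fold change 1.81 ± 0.31, adjusted p = 0.00192). Its relative NYE2 (AT4G11910) had 19.6 and 48.4 CPM at 168 h, against 0.797, 0.932 and 0 CPM in untreated leaves (log2 fold change 5.83 ± 1.31, adjusted p = 0.00695). NYE2 was barely detected in untreated leaves. PPH (AT5G13800), which removes the phytol tail, had 205 and 312 CPM at 168 h and 73.1, 87.3 and 93.2 CPM in untreated leaves (log2 fold change 1.61 ± 0.41), PAO (AT3G44880), which opens the ring, had 232 and 320.1 CPM at 168 h and 89.9, 104 and 103 CPM in untreated leaves (log2 fold change 1.48 ± 0.38), and RCCR (AT4G37000), which acts after it, had 75 and 66 CPM at 168 h and 40.7, 49.4 and 43.5 CPM in untreated leaves (log2 fold change 0.66 ± 0.16). Of the chlorophyll synthesis genes, 7 were called lower without GA3 168 h library 2. Of the chlorophyll breakdown genes, 3 were called higher without GA3 168 h library 2. RCCR (0.56) was not called without GA3 168 h library 1, nor were PAO (1.19) and PPH (1.23) without GA3 168 h library 2. For PCB2 (-4.83) the log2 fold change moved without GA3 168 h library 1, and for PCB2 (-2.92) and NYE2 (4.99) without GA3 168 h library 2.

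Regulators of leaf ageing were partly higher. Of the leaf senescence list, 7 of 23 tested genes were called higher and 1 lower, where the shares over all tested genes were 15.1% and 16.1%. The median log2 fold change was 0.45, beside a median of 0.0127 over all genes. Values of 14 genes lay above 0 and of 9 below, down to -4.98. The level of the list was 0.426 and 0.909 with GA3 at 168 h, 0.0515, 0.512 and 0.371 with mock at 24 h and -0.582, 0.184 and 1.76 with GA3 at 3 h. The members named below were picked by small p and all rose. NAP (AT1G69490), a NAC factor that drives leaf senescence, had 83.6 and 146 CPM at 168 h, against 35, 35.9 and 31.8 CPM in untreated leaves (log2 fold change 1.75 ± 0.34, adjusted p = 0.00351). JUB1 (AT2G43000), a NAC factor that delays senescence, had 15.7 and 9.99 CPM at 168 h, against 1.42, 1.07 and 0.955 CPM in untreated leaves (log2 fold change 3.48 ± 0.61, adjusted p = 0.00211). Both rose, although they act in opposite senses on leaf ageing. ORE1 (AT5G39610), a NAC factor that promotes senescence and cell death, had 30.1 and 169 CPM at 168 h, against 7.08, 6.79 and 3.34 CPM in untreated leaves (log2 fold change 4.11 ± 0.99, adjusted p = 0.00991), and ORS1 (AT3G29035), its relative, had 18.5 and 86.3 CPM at 168 h, against 1.59, 2.8 and 3.29 CPM in untreated leaves (log2 fold change 4.36 ± 0.94, adjusted p = 0.00564). ANAC016 (AT1G34180), another NAC factor, had 7.61 and 18.6 CPM at 168 h and 3.85, 2.13 and 2.6 CPM in untreated leaves (log2 fold change 2.19 ± 0.53). In ORE1 and ORS1 168 h library 2 was several times higher than library 1, and both lay above every untreated library. Of the leaf senescence genes, 1 was called higher without GA3 168 h library 2. NAP (1.24), ORS1 (2.80), ANAC016 (1.36) and ORE1 (2.34) were not called without GA3 168 h library 2. For ORS1 (5.07) and ORE1 (4.87) the log2 fold change moved without GA3 168 h library 1.

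Genes of cell wall loosening and growth were lower. Of the expansins, proteins that loosen cell walls, 9 of 17 tested genes were called lower and 0 higher, and the median log2 fold change was -2.44. EXPA5 (AT3G29030) had 12 and 9.86 CPM at 168 h, against 38.1, 65.9 and 52.1 CPM in untreated leaves (log2 fold change -2.25 ± 0.47, adjusted p = 0.00468). EXPA11 (AT1G20190) had 4.75 and 1.52 CPM at 168 h and 20.7, 34.3 and 22.4 CPM in untreated leaves (log2 fold change -3.04 ± 0.65). EXLA2 (AT4G38400), of the expansin-like branch, had 1.39 and 0.869 CPM at 168 h and 26.5, 10.9 and 10.4 CPM in untreated leaves (log2 fold change -3.81 ± 0.97). In all 3, picked by small p, the 168 h libraries lay under the untreated range. EXPA9 (AT5G02260) had 2.44 and 0.217 CPM at 168 h and 9.29, 13 and 11.7 CPM in untreated leaves (log2 fold change -3.09 ± 0.79), and EXPA3 (AT2G37640) had 1.77 and 0.174 CPM at 168 h and 4.25, 8.65 and 10.4 CPM in untreated leaves (log2 fold change -2.98 ± 0.71). Of the expansin genes, 0 were called lower without GA3 168 h library 2. EXPA5 (-2.16), EXPA11 (-2.49), EXPA3 (-2.18), EXLA2 (-3.56) and EXPA9 (-2.26) were not called without GA3 168 h library 2, nor was EXLA2 (-4.18) without GA3 168 h library 1, nor were EXPA3 (-2.99) and EXPA9 (-3.08) in a fit of these 5 libraries alone. EXLA2 (-3.70) was not called with limma-voom. For EXPA11 (-4.09), EXPA3 (-5.44) and EXPA9 (-5.68) the log2 fold change moved without GA3 168 h library 1.

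Of the xyloglucan endotransglucosylases, which cut and rejoin the wall polymer xyloglucan, 10 of 20 tested genes were called lower and 1 higher, and the median log2 fold change was -2.44 (-2.44 with the gene at 0 counts set at its bound). XTH7 (AT4G37800) had 9.88 and 9.64 CPM at 168 h, against 154, 203 and 114 CPM in untreated leaves (log2 fold change -4.01 ± 0.28, adjusted p = 5.86e-05). XTH9 (AT4G03210) had 3.91 and 3.39 CPM at 168 h and 44.7, 28.5 and 38.7 CPM in untreated leaves (log2 fold change -3.35 ± 0.73). XTH8 (AT1G11545) had 1.81 and 0.521 CPM at 168 h and 13.5, 16.9 and 12.6 CPM in untreated leaves (log2 fold change -3.61 ± 0.70). XTH7 was the gene with the smallest p of the family and was alike in both 168 h libraries. XTH16 (AT3G23730) had 0.0841 and 0.608 CPM at 168 h and 26.1, 14 and 11 CPM in untreated leaves (log2 fold change -5.61 ± 1.22). XTH28 (AT1G14720) went the other way, with 59.6 and 48 CPM at 168 h and 25.5, 31.3 and 32.1 CPM in untreated leaves (log2 fold change 0.86 ± 0.16). Of the XTH genes, 6 were called lower with limma-voom or without GA3 168 h library 2. XTH16 (-5.98) was not called with limma-voom, nor was XTH9 (-3.30) without GA3 168 h library 2. For XTH8 (-4.77) and XTH16 (-4.80) the log2 fold change moved without GA3 168 h library 1, and for XTH16 (-7.61) without GA3 168 h library 2.

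Of the cell cycle and DNA replication genes, 6 of 21 tested genes were called lower and 1 higher, and the median log2 fold change was -1.03. The share called lower over all tested genes was 16.1%. CYCB1;2 (AT5G06150), a mitotic cyclin, had 0.126 and 0 CPM at 168 h, against 4.38, 2.13 and 2.65 CPM in untreated leaves (16.2- to 235-fold lower by the 95% counting interval, adjusted p = 0.00268). KNOLLE (AT1G08560), a syntaxin of the dividing cell plate, had 1.26 and 0.652 CPM at 168 h and 8.81, 4.22 and 3.82 CPM in untreated leaves (log2 fold change -2.55 ± 0.58). CDKB2;1 (AT1G76540), a mitotic kinase, had 0.883 and 0.347 CPM at 168 h and 5.22, 3.95 and 2.33 CPM in untreated leaves (log2 fold change -2.63 ± 0.55). Their levels were low in untreated leaves already. CDKB1;1 (AT3G54180) had 0.294 and 0.13 CPM at 168 h and 1.19, 0.71 and 1.64 CPM in untreated leaves (log2 fold change -2.44 ± 0.60), and the Aurora kinase AUR1 (AT4G32830) had 0.883 and 0.652 CPM at 168 h and 2.7, 2.4 and 2.28 CPM in untreated leaves (log2 fold change -1.67 ± 0.42). Of the cell cycle and DNA replication genes, 16 were called lower without GA3 168 h library 1, and 1 without GA3 168 h library 2. CDKB2;1 (-2.16), KNOLLE (-2.19), CDKB1;1 (-2.02) and AUR1 (-1.52) were not called without GA3 168 h library 2, nor was CDKB1;1 (-2.43) in a fit of these 5 libraries alone. CYCB1;2 was at least 23.6-fold lower without GA3 168 h library 1 and 8.23- to 119-fold lower without GA3 168 h library 2. For CDKB2;1 (-3.45) and CDKB1;1 (-3.12) the log2 fold change moved without GA3 168 h library 1.

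Among the Aux/IAA genes, which encode repressors that auxin itself induces, 6 of 12 tested genes were called lower and 1 higher, and the median log2 fold change was -1.62. IAA7 (AT3G23050) had 30.4 and 34 CPM at 168 h, against 144, 134 and 142 CPM in untreated leaves (log2 fold change -2.12 ± 0.25, adjusted p = 0.000513). IAA19 (AT3G15540) had 3.07 and 2.08 CPM at 168 h, against 23.1, 15.6 and 14.2 CPM in untreated leaves (log2 fold change -2.77 ± 0.53, adjusted p = 0.00321). IAA4 (AT5G43700) had 13 and 13 CPM at 168 h and 35.3, 42.6 and 50.4 CPM in untreated leaves (log2 fold change -1.72 ± 0.33). No 168 h library overlapped the untreated ones in these 3 genes, which were picked by small p. IAA3 (AT1G04240) had 5.38 and 14.4 CPM at 168 h and 43.3, 34 and 45.7 CPM in untreated leaves (log2 fold change -2.05 ± 0.57), and IAA6 (AT1G52830) had 0.126 and 0 CPM at 168 h and 3.32, 2.49 and 1.86 CPM in untreated leaves (13.6- to 198-fold lower by the 95% counting interval). IAA6 (adjusted p = 0.136) was not called with limma-voom, nor was IAA3 (-1.52) without GA3 168 h library 1, nor was IAA6 (adjusted p = 0.052) without GA3 168 h library 2. IAA6 was at least 19.9-fold lower without GA3 168 h library 1 and 6.92- to 101-fold lower without GA3 168 h library 2. For IAA3 (-2.97) the log2 fold change moved without GA3 168 h library 2.

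The growth bHLH factors and shade targets were split, since 5 of 17 tested genes were called higher and 5 lower, and the median log2 fold change was -0.66. IBH1 (AT2G43060), a bHLH protein that holds back elongation, had 54.4 and 50.6 CPM at 168 h, against 12, 12.3 and 10.4 CPM in untreated leaves (log2 fold change 2.18 ± 0.30, adjusted p = 0.000786). AIF1 (AT3G05800), another bHLH inhibitor of growth, had 0.757 and 0.738 CPM at 168 h, against 7.35, 6.57 and 6.63 CPM in untreated leaves (log2 fold change -3.19 ± 0.49, adjusted p = 0.00123). The 2 inhibitors thus changed in opposite directions. HFR1 (AT1G02340), a brake on the shade response, had 61.6 and 38.7 CPM at 168 h and 5.13, 2.88 and 5.09 CPM in untreated leaves (log2 fold change 3.52 ± 0.67), and ATHB2 (AT4G16780), a shade-induced homeobox factor, had 109 and 52.8 CPM at 168 h and 13.2, 10.5 and 11.6 CPM in untreated leaves (log2 fold change 2.78 ± 0.57). PIF3 (AT1G09530), a phytochrome-interacting factor, had 23.1 and 46.2 CPM at 168 h and 10, 7.1 and 6.68 CPM in untreated leaves (log2 fold change 2.13 ± 0.38). Of the growth bHLH and shade genes, 3 were called lower without GA3 168 h library 2. For PIF3 (1.50) the log2 fold change moved without GA3 168 h library 2, and for ATHB2 (2.16) without GA3 168 h library 1.

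Of the aquaporins, which are water channels, 7 of 17 tested genes were called lower and 1 higher, and the median log2 fold change was -0.54. The share called lower over all tested genes was 16.1%. TIP2;1 (AT3G16240), a channel of the vacuole membrane, had 10.3 and 9.9 CPM at 168 h, against 679, 640.4 and 725 CPM in untreated leaves (log2 fold change -6.07 ± 0.67, adjusted p = 0.000437). TIP1;2 (AT3G26520) had 152 and 231 CPM at 168 h and 684, 721 and 833 CPM in untreated leaves (log2 fold change -1.96 ± 0.38). PIP2;4 (AT5G60660), of the plasma membrane, had 1.26 and 0.782 CPM at 168 h and 4.2, 3.46 and 3.29 CPM in untreated leaves (log2 fold change -1.83 ± 0.31). TIP2;1 fell the most of the family and was alike in both 168 h libraries. PIP2;7 (AT4G35100) had 52.3 and 83.1 CPM at 168 h and 279, 332 and 321 CPM in untreated leaves (log2 fold change -2.20 ± 0.48), and PIP2;8 (AT2G16850) had 0.757 and 0.608 CPM at 168 h and 5.49, 3.95 and 3.82 CPM in untreated leaves (log2 fold change -2.68 ± 0.66). Of the aquaporin genes, 3 were called lower without GA3 168 h library 1. PIP2;7 (-1.91) and PIP2;8 (-2.85) were not called without GA3 168 h library 1, nor was PIP2;8 (-2.65) with limma-voom, nor was PIP2;8 (-2.58) without GA3 168 h library 2.

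**Figure D3:**
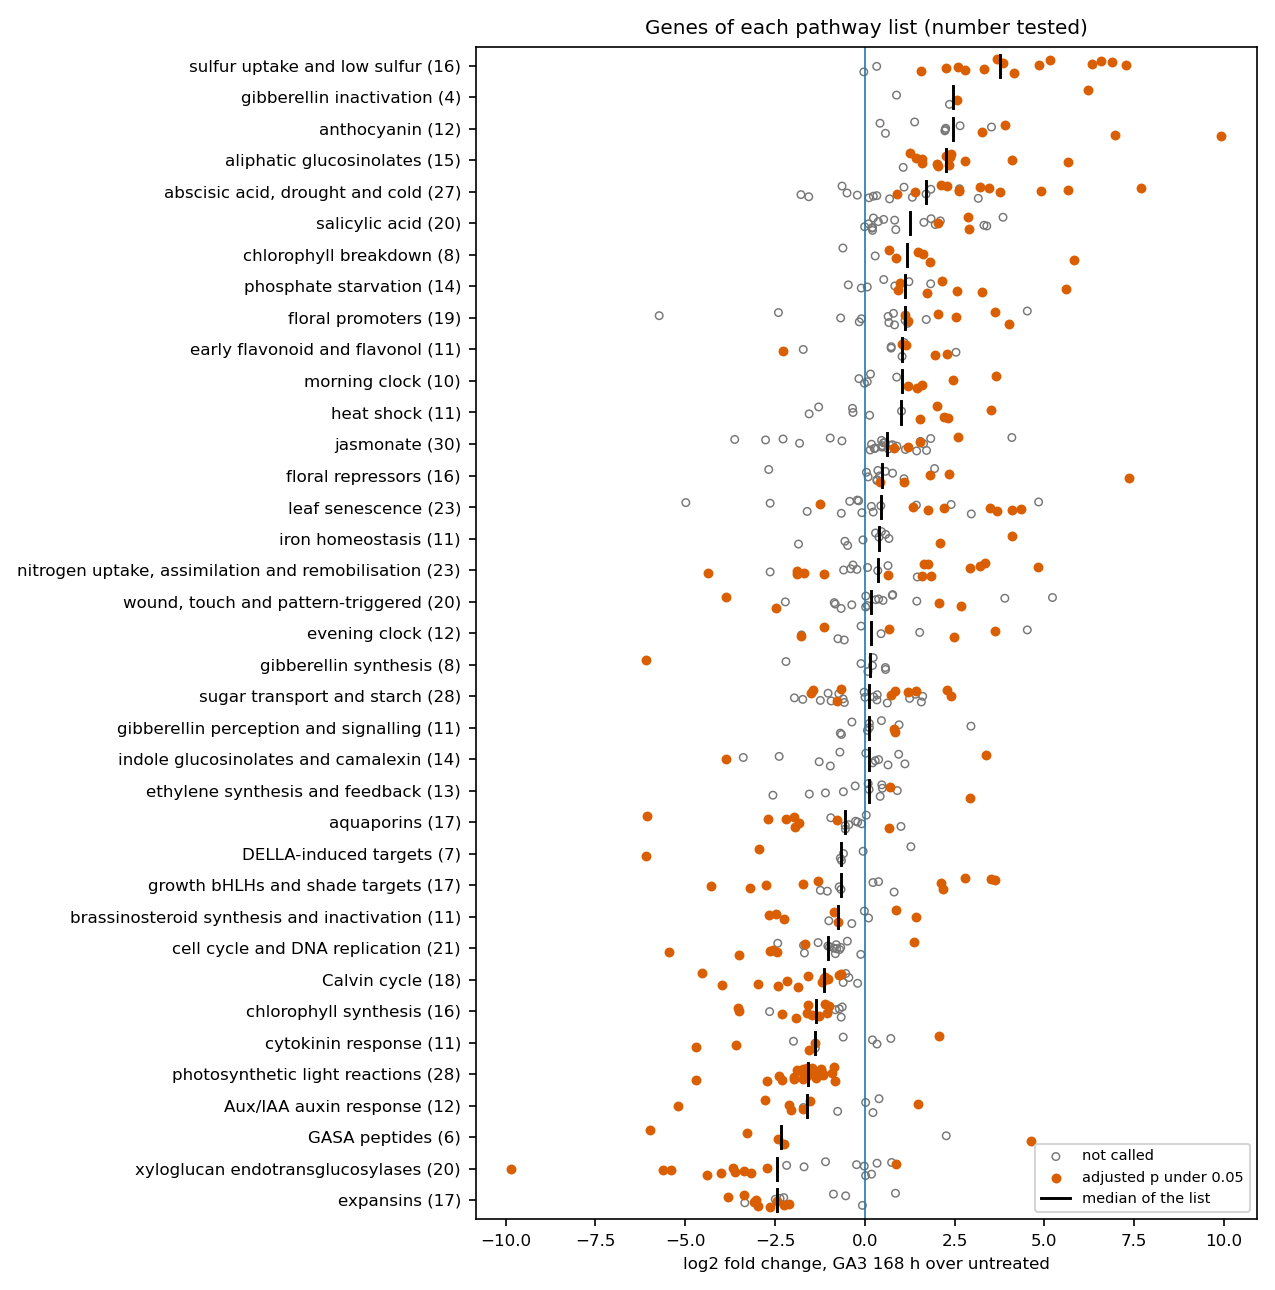
Each row is a pathway list with the number of its genes tested, ordered by median, and each point a gene's log2 fold change of GA3 168 h over untreated, filled where its adjusted p was under 0.05; black bars mark medians. Light reactions (median -1.59) and expansins (-2.44) lie to the left of 0, and sulfur genes (3.77) and aliphatic glucosinolates (2.27) to the right.

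The sulfur list held the highest median of the 37 pathway lists. Of its genes for uptake, assimilation and the response to sulfur shortage, 14 of 16 tested genes were called higher and 0 lower, and the median log2 fold change was 3.77. Beside LSU1 and SDI1, LSU3 (AT3G49570), a neighbour and relative of LSU1, had 131 and 226 CPM at 168 h, against 2.08, 1.78 and 2.81 CPM in untreated leaves (log2 fold change 6.33 ± 0.89, adjusted p = 0.00084). APR1 (AT4G04610) and APR2 (AT1G62180) encode APS reductase, a control point of sulfate reduction. APR1 had 476 and 579 CPM at 168 h, against 42.7, 61.8 and 52.7 CPM in untreated leaves (log2 fold change 3.33 ± 0.41, adjusted p = 0.000536). APR2 had 878 and 979.5 CPM at 168 h, against 204, 225 and 155 CPM in untreated leaves (log2 fold change 2.25 ± 0.30, adjusted p = 0.000699). In each of the 4 LSU and APR genes the lower 168 h library was several times above the highest untreated one. The level of the list, taken as the median over genes of the difference in log2(CPM + 0.5) from the untreated mean, was 2.46, 2.26 and 1.49 with mock at 24 h, 2.62, 3.28 and 1.78 with GA3 at 24 h and 3.18 and 4.15 with GA3 at 168 h, so the leaves with mock needles lay above untreated leaves as well.

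Promoters of 3 of these genes are printed to show the sequence that precedes the strongest rises (RefSeq TAIR10.1, 5′ to 3′ on the strand of the gene, 250 bases before the annotated start and 50 after it). Capitals mark GAGAC or its complement GTCTC, the core of an element described in sulfur-responsive promoters.
SDI1: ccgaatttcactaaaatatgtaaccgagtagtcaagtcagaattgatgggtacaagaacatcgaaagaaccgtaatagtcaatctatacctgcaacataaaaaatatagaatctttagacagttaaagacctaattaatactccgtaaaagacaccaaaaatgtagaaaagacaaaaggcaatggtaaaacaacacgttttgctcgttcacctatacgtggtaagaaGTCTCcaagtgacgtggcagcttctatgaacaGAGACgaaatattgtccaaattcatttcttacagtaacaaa
BGLU28: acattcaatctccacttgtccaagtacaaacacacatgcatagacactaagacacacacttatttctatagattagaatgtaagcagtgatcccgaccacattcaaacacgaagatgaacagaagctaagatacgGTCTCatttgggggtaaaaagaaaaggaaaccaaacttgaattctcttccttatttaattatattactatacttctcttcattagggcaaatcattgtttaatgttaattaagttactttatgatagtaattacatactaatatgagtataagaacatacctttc
LSU1: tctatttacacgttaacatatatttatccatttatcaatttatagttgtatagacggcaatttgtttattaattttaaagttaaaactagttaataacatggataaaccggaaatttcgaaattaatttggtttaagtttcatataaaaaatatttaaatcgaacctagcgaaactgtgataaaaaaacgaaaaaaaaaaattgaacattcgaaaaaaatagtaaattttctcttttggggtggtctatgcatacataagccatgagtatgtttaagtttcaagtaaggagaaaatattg
SDI1 is read from chr5:19807804-19808103, minus strand, BGLU28 from chr2:18346056-18346355, plus strand, and LSU1 from chr3:18375891-18376190, minus strand. SDI1 holds 2 matches, BGLU28 1 and LSU1 0 in this window. Of the 16 tested sulfur genes 5 held a match (31.2%), against 32.4% of all 19433 tested promoters read, so the letters were no more frequent here than elsewhere.

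Aliphatic glucosinolates are sulfur-rich defence compounds made from methionine. Of their genes, 14 of 15 tested genes were called higher and 0 lower, and the median log2 fold change was 2.27. MAM3 (AT5G23020), which lengthens methionine chains, had 325 and 349 CPM at 168 h, against 2.48, 12.3 and 5.14 CPM in untreated leaves (log2 fold change 5.66 ± 0.95, adjusted p = 0.00179). CYP79F1 (AT1G16410) had 827 and 1173 CPM at 168 h, against 50.5, 211 and 173 CPM in untreated leaves (log2 fold change 2.79 ± 0.48, adjusted p = 0.00203) and its near copy CYP79F2 (AT1G16400) had 33 and 47 CPM at 168 h and 0.929, 3.86 and 2.17 CPM in untreated leaves (log2 fold change 4.10 ± 0.64). Both enzymes start the core pathway, and reads that fit both of the 2 genes were counted for neither, so their single values are uncertain. Untreated library 1 was the lowest of its group in these 3 genes, and the groups stayed apart. FMOGS-OX1 (AT1G65860), which oxidises side chains, had 177 and 179 CPM at 168 h and 20.7, 47 and 38.5 CPM in untreated leaves (log2 fold change 2.33 ± 0.40), and SUR1 (AT2G20610), the C-S lyase shared with indole glucosinolates, had 305 and 314 CPM at 168 h and 96.9, 134 and 114 CPM in untreated leaves (log2 fold change 1.43 ± 0.24). The level of this list was 1.71, 0.94 and 0.91 with mock at 24 h, 2.00, 1.44 and 1.24 with GA3 at 24 h and 1.95 and 2.18 with GA3 at 168 h. For CYP79F2 (4.70) and MAM3 (6.47) the log2 fold change moved without untreated library 2.

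Of the genes of indole glucosinolates and camalexin, 1 of 14 tested genes was called higher and 1 lower, and the median log2 fold change was 0.12. Over all tested genes the shares were 15.1% higher and 16.1% lower. CYP71A12 (AT2G30750), a camalexin-type P450, had 33.2 and 31.4 CPM at 168 h, against 1.33, 4.48 and 3.55 CPM in untreated leaves (log2 fold change 3.37 ± 0.59, adjusted p = 0.00209). CYP81F2 (AT5G57220), which modifies indole glucosinolates, had 2.48 and 2 CPM at 168 h, against 7.3, 39.7 and 51 CPM in untreated leaves (log2 fold change -3.86 ± 1.27, adjusted p = 0.0373). PEN2 (AT2G44490), the thioglucosidase that releases their products, had 141 and 184 CPM at 168 h, against 236, 232 and 319 CPM in untreated leaves (log2 fold change -0.69 ± 0.28, adjusted p = 0.0757). Only CYP71A12 among these was called higher, and PEN2 did not pass the test. Of the indole glucosinolates and camalexin genes, 3 were called lower with DESeq2, and 0 with limma-voom, without GA3 168 h library 2, without untreated library 2 or without untreated library 3, and 2 without GA3 168 h library 1 or without untreated library 1. CYP81F2 (-3.43) was not called with limma-voom, nor was CYP81F2 (-4.04) without GA3 168 h library 1, nor was CYP81F2 (-3.76) without GA3 168 h library 2. CYP81F2 (-3.70) was not called without untreated library 2, nor was CYP81F2 (-3.39) without untreated library 3.

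Nitrogen genes moved both ways: 9 of 23 tested genes were called higher and 5 lower, and the median log2 fold change was 0.36. The shares over all tested genes were 15.1% higher and 16.1% lower. GLN1;3 (AT3G17820), a cytosolic glutamine synthetase, had 74.1 and 77.4 CPM at 168 h, against 12.6, 24.3 and 26.9 CPM in untreated leaves (log2 fold change 1.83 ± 0.34, adjusted p = 0.00289). GLN2 (AT5G35630), the plastid glutamine synthetase of photosynthetic leaves, had 856 and 725 CPM at 168 h, against 1698, 1775 and 1693 CPM in untreated leaves (log2 fold change -1.12 ± 0.23, adjusted p = 0.0042). The cytosolic form thus rose and the plastid form fell. NRT1.5 (AT1G32450), a nitrate transporter of vascular tissue, had 105 and 257 CPM at 168 h and 31.9, 28 and 11.3 CPM in untreated leaves (log2 fold change 2.93 ± 0.54). GDH3 (AT3G03910), a glutamate dehydrogenase, had 0.589 and 0.391 CPM at 168 h and 9.12, 8.88 and 13 CPM in untreated leaves (log2 fold change -4.38 ± 0.77). ASN2 (AT5G65010), an asparagine synthetase, had 86.4 and 35.1 CPM at 168 h and 140.3, 325 and 205 CPM in untreated leaves (log2 fold change -1.88 ± 0.43). Of the nitrogen genes, 4 were called higher without GA3 168 h library 2. Of the nitrogen genes, 3 were called lower in a fit of these 5 libraries alone, without GA3 168 h library 1, without GA3 168 h library 2 or without untreated library 3. ASN2 (-1.42) was not called without GA3 168 h library 2, nor was ASN2 (-1.88) in a fit of these 5 libraries alone. For NRT1.5 (2.09) the log2 fold change moved without GA3 168 h library 2, and for ASN2 (-2.68) without GA3 168 h library 1.

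Of the phosphate starvation genes, 7 of 14 tested genes were called higher and 0 lower, and the median log2 fold change was 1.11. PAP17 (AT3G17790), a purple acid phosphatase, had 73.6 and 95 CPM at 168 h, against 1.9, 2.31 and 0.902 CPM in untreated leaves (log2 fold change 5.61 ± 0.71, adjusted p = 0.000595). PHT1;5 (AT2G32830), a phosphate transporter that moves phosphate between organs, had 4.79 and 8.08 CPM at 168 h and 0.708, 0.444 and 0.849 CPM in untreated leaves (log2 fold change 3.27 ± 0.48). SPX1 (AT5G20150), a sensor protein of phosphate status, had 20.5 and 32.8 CPM at 168 h and 3.27, 4.79 and 5.3 CPM in untreated leaves (log2 fold change 2.58 ± 0.40). The groups did not overlap in any of the 3, which were picked by small p. SPX2 (AT2G26660) had 30.6 and 29.6 CPM at 168 h and 15.8, 14.6 and 17.3 CPM in untreated leaves (log2 fold change 0.92 ± 0.19), and PS2 (AT1G73010), a phosphatase, had 1.85 and 0.999 CPM at 168 h and 0.221, 0.266 and 0.477 CPM in untreated leaves (log2 fold change 2.14 ± 0.58). Of the iron genes, 2 of 11 tested genes were called higher and 0 lower, and the median log2 fold change was 0.40. The share called higher over all tested genes was 15.1%. NAS3 (AT1G09240), nicotianamine synthase, had 49 and 165 CPM at 168 h and 10.8, 6.35 and 1.48 CPM in untreated leaves (log2 fold change 4.10 ± 0.71). FER1 (AT5G01600), the iron store ferritin, had 769 and 1235 CPM at 168 h and 236, 262 and 206 CPM in untreated leaves (log2 fold change 2.10 ± 0.46). Of the iron genes, 1 was called higher without GA3 168 h library 2. PS2 (2.15) was not called in a fit of these 5 libraries alone, nor was PS2 (1.62) without GA3 168 h library 1, nor was PS2 (2.03) without untreated library 2. FER1 (1.67) was not called without GA3 168 h library 2. For NAS3 (4.72) the log2 fold change moved without GA3 168 h library 1, and for NAS3 (2.93) without GA3 168 h library 2, and for NAS3 (4.74) without untreated library 1.

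Among sugar transport and starch genes, 6 of 28 tested genes were called higher and 4 lower, and the median log2 fold change was 0.13. Over all tested genes the shares were 15.1% higher and 16.1% lower. APL3 (AT4G39210) and APL1 (AT5G19220) both encode large subunits of the enzyme that starts starch synthesis. APL3, known to respond to sugar, had 144 and 129 CPM at 168 h, against 28.9, 30.8 and 23.9 CPM in untreated leaves (log2 fold change 2.29 ± 0.34, adjusted p = 0.00107). APL1, the main leaf form, had 107 and 92.8 CPM at 168 h, against 273, 266 and 269 CPM in untreated leaves (log2 fold change -1.43 ± 0.25, adjusted p = 0.00207). The 2 subunit genes moved apart. DPE2 (AT2G40840), which uses maltose from starch at night, had 145 and 139 CPM at 168 h and 54.5, 62 and 68.5 CPM in untreated leaves (log2 fold change 1.21 ± 0.17), and ISA3 (AT4G09020), a debranching enzyme, had 22.4 and 32.1 CPM at 168 h and 8.19, 13 and 9.07 CPM in untreated leaves (log2 fold change 1.44 ± 0.24). AMY3 (AT1G69830), a plastid amylase, had 25.3 and 26.3 CPM at 168 h and 54, 86 and 79 CPM in untreated leaves (log2 fold change -1.50 ± 0.24). Of the sugar and starch genes, 2 were called lower in a fit of these 5 libraries alone, with total counts as library size, without GA3 168 h library 2, without untreated library 2 or without untreated library 3.

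Of the genes of abscisic acid, drought and cold, 12 of 27 tested genes were called higher and 0 lower, and the median log2 fold change was 1.71. RD20 (AT2G33380), a drought-induced caleosin of lipid bodies, had 1033 and 1405 CPM at 168 h, against 134, 71.9 and 60.5 CPM in untreated leaves (log2 fold change 3.78 ± 0.66, adjusted p = 0.00205). ABF3 (AT4G34000), a bZIP factor of abscisic acid signalling, had 163 and 134 CPM at 168 h, against 41.4, 33 and 27.8 CPM in untreated leaves (log2 fold change 2.12 ± 0.33, adjusted p = 0.00134). HAI2 (AT1G07430), a phosphatase that abscisic acid induces, had 14.8 and 13.9 CPM at 168 h and 0.531, 0.222 and 0.053 CPM in untreated leaves (log2 fold change 5.67 ± 0.87). GOLS2, among the largest rises, belongs to this list. ABI2 (AT5G57050), another phosphatase of this pathway, had 45.5 and 58.1 CPM at 168 h and 11.3, 8.88 and 5.2 CPM in untreated leaves (log2 fold change 2.61 ± 0.49). The level of the list was 2.23, 2.89 and 4.01 with GA3 at 3 h, 1.24, 1.07 and 0.95 with GA3 at 24 h, 1.08, 0.60 and 0.35 with mock at 24 h and 1.06 and 1.36 with GA3 at 168 h. Of the abscisic acid, drought and cold genes, 7 were called higher without untreated library 2. For HAI2 (6.57) the log2 fold change moved without untreated library 1.

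Of the heat shock genes, 5 of 11 tested genes were called higher and 0 lower, where 15.1% of all tested genes were called higher. The median log2 fold change was 1.02. The level of the list was 0.604 and 0.372 with GA3 at 168 h, against 0.583, -0.295 and -0.311 in untreated leaves. It was 3.45, 1.88 and 1.72 with GA3 at 3 h, 1.84, 0.618 and 0.767 with GA3 at 24 h and 0.455, 0.725 and 1.67 with mock at 24 h. MBF1C (AT3G24500), a transcriptional coactivator of heat tolerance, had 22.8 and 17.5 CPM at 168 h and 5.97, 5.02 and 3.87 CPM in untreated leaves (log2 fold change 2.02 ± 0.36). HSFA2 (AT2G26150), a heat shock factor, had 3.62 and 3.47 CPM at 168 h and 0.885, 0 and 0 CPM in untreated leaves (log2 fold change 3.52 ± 0.90). HSP90.1 (AT5G52640), a chaperone, had 42.9 and 44.5 CPM at 168 h and 20.7, 3.86 and 3.87 CPM in untreated leaves (log2 fold change 2.20 ± 0.75). Untreated library 1 was the highest of its group in HSFA2 and HSP90.1, where the other untreated libraries were far lower. Of the heat shock genes, 2 were called higher in a fit of these 5 libraries alone, without GA3 168 h library 1, without untreated library 2 or without untreated library 3, and 1 without GA3 168 h library 2. HSFA2 (3.54) and HSP90.1 (2.21) were not called in a fit of these 5 libraries alone, nor were HSFA2 (3.50) and HSP90.1 (2.14) without GA3 168 h library 2, nor was HSP90.1 (1.83) without untreated library 2. HSP90.1 (2.23) was not called without GA3 168 h library 1, nor was HSP90.1 (1.83) without untreated library 3. For HSFA2 (9.23) and HSP90.1 (3.47) the log2 fold change moved without untreated library 1, and for HSFA2 (2.93) without untreated library 2.

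Of the anthocyanin genes, 4 of 12 tested genes were called higher and 0 lower, where 15.1% of all tested genes were called higher. The median log2 fold change was 2.45. The level of the list was 1.36 and 3.31 with GA3 at 168 h, against -0.827, 0.192 and 0.737 in untreated leaves. It was 0.878, 1.19 and -0.221 with GA3 at 3 h, -0.25, 0.719 and -0.2 with GA3 at 24 h and 2.27, 0.233 and -1.15 with mock at 24 h. Beside PAP1 and PAP2, MYB114 (AT1G66380), a MYB of the same group, had 1.39 and 2.08 CPM at 168 h, against 0.177, 0.0888 and 0.265 CPM in untreated leaves (log2 fold change 3.27 ± 0.92, adjusted p = 0.0197). PAP2 and MYB114 lie among close copies on chromosome 1. Reads that fit several of these were counted for none, so their single values are uncertain. TT19 (AT5G17220), which carries anthocyanin to the vacuole, had 20.4 and 154 CPM at 168 h, against 2.04, 6.7 and 8.8 CPM in untreated leaves (log2 fold change 3.90 ± 1.16, adjusted p = 0.0254). UGT78D2 (AT5G17050), which adds glucose to anthocyanidins, had 50.9 and 96.9 CPM at 168 h, against 19.7, 29.7 and 35.3 CPM in untreated leaves (log2 fold change 1.39 ± 0.56, adjusted p = 0.0803) and did not pass the test. In TT19 and UGT78D2 168 h library 2 was the higher one. Of the early flavonoid genes, 4 of 11 tested genes were called higher and 1 lower, and the median log2 fold change was 1.04. PAL1 (AT2G37040), which opens the phenylpropanoid pathway, had 207 and 182 CPM at 168 h and 68, 105 and 91.5 CPM in untreated leaves (log2 fold change 1.14 ± 0.26). C4H (AT2G30490), its next enzyme, had 238 and 198 CPM at 168 h and 111, 102 and 105 CPM in untreated leaves (log2 fold change 1.04 ± 0.19). F3H (AT3G51240) had 40.7 and 99.5 CPM at 168 h and 9.96, 15.8 and 17.4 CPM in untreated leaves (log2 fold change 2.28 ± 0.55), while FLS1 (AT5G08640), which diverts the pathway to flavonols, had 0.673 and 0.825 CPM at 168 h and 3.41, 4.7 and 2.86 CPM in untreated leaves (log2 fold change -2.28 ± 0.55). Of the anthocyanin genes, 2 were called higher without GA3 168 h library 2 or without untreated library 2. Of the early flavonoid genes, 2 were called higher without GA3 168 h library 2. MYB114 (2.90), TT19 (1.76), F3H (1.45) and FLS1 (-2.48) were not called without GA3 168 h library 2, nor were MYB114 (2.95) and TT19 (4.02) without untreated library 2, nor were TT19 (3.54) and FLS1 (-2.25) with limma-voom. FLS1 (-2.15) was not called without GA3 168 h library 1, nor was TT19 (3.48) without untreated library 1, nor was TT19 (4.32) without untreated library 3. For TT19 (4.71) the log2 fold change moved without GA3 168 h library 1.

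Of the gibberellin synthesis genes, 1 of 8 tested genes was called lower and 0 higher, and the median log2 fold change was 0.15, where 16.1% of all tested genes were called lower, and 2 of 10 genes were too low to test. The gene called lower was GA3OX1 (AT1G15550, chromosome 1, 5344388 to 5346342, minus strand), whose enzyme makes bioactive gibberellin and which gibberellin represses. It had 0 and 0.0434 CPM at 168 h, against 1.99, 2.35 and 1.17 CPM in untreated leaves (15.5- to 3496-fold lower by the 95% counting interval, adjusted p = 0.00761). GA20OX1 (AT4G25420), of the step before it, had 0.168 and 0.261 CPM at 168 h, against 0.797, 1.51 and 0.689 CPM in untreated leaves (log2 fold change -2.19 ± 1.01, adjusted p = 0.117) and did not pass the test. GA3OX1 had 1 read in the 168 h libraries together, against 120 in untreated leaves. The early enzymes CPS (0.088 ± 0.94), KS (0.58 ± 0.53), KO (0.57 ± 0.24), KAO1 (0.21 ± 0.22) and KAO2 (-0.10 ± 0.25), given as log2 fold changes, did not pass, nor did GA3OX2 (0.23 ± 1.14). GA20OX3 had no read in the 5 libraries. GA20OX2 had 0 reads at 168 h and 11 in untreated leaves, at least 2.68-fold lower against the floor, without a test. GA3OX1 (adjusted p = 0.054) was not called without GA3 168 h library 1. GA3OX1 was 7.6- to 1719-fold lower without GA3 168 h library 1 and at least 14.9-fold lower without GA3 168 h library 2.

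Of the 11 genes of gibberellin inactivation 4 could be tested, and 2 of them were called higher. GAMT2 (AT5G56300), a methyltransferase that disables gibberellins, had 5.63 and 4.39 CPM at 168 h, against 0, 0.178 and 0 CPM in untreated leaves (log2 fold change 6.21 ± 1.20, adjusted p = 0.00338). GA2OX2 (AT1G30040), a 2-oxidase that gibberellin induces, had 3.91 and 22.2 CPM at 168 h, against 2.97, 2.35 and 1.27 CPM in untreated leaves (log2 fold change 2.56 ± 0.61, adjusted p = 0.00951). GA2OX6 had 5.3 and 7.08 CPM at 168 h and 3.67, 3.55 and 2.81 CPM in untreated leaves (log2 fold change 0.88 ± 0.42) and did not pass. The rise of GA2OX2 rested on 168 h library 2, which was several times above library 1, and GAMT2 was high in both. GA2OX1 had 0.42 and 0.434 CPM at 168 h and 0.133, 0 and 0.106 CPM in untreated leaves (log2 fold change 2.36 ± 1.26) and did not pass. The others were too low to test. GAMT1 had 11 reads at 168 h and 0 in untreated leaves, CYP714A1 5 and 0, GA2OX3 1 and 18, GA2OX8 0 and 15, and GA2OX4 0 and 1, while GA2OX7 and CYP714A2 had none. GA2OX2 (2.58) was not called in a fit of these 5 libraries alone, nor was GA2OX2 (2.11) with limma-voom, nor was GA2OX2 (0.78) without GA3 168 h library 2. For GA2OX2 (3.33) the log2 fold change moved without GA3 168 h library 1, and for GAMT2 (5.62) without untreated library 1, and for GAMT2 (9.74) without untreated library 2.

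Of the perception and signalling genes, 2 of 11 tested genes were called higher and 0 lower, and the median log2 fold change was 0.13, where 15.1% of all tested genes were called higher. GID1C (AT5G27320), a receptor, had 19.8 and 34.7 CPM at 168 h, against 15.7, 14.8 and 15.1 CPM in untreated leaves (log2 fold change 0.84 ± 0.22, adjusted p = 0.0148). RGA (AT2G01570), a DELLA protein, had 106 and 94.2 CPM at 168 h, against 46.9, 60.3 and 62 CPM in untreated leaves (log2 fold change 0.82 ± 0.28, adjusted p = 0.0441). The other receptors did not pass. GID1A had 9.75 and 15.6 CPM at 168 h and 20.5, 21.2 and 17.9 CPM in untreated leaves (log2 fold change -0.65 ± 0.24). The values of GID1A lay under the untreated ones, those of GID1C above. GID1B had 9.84 and 5.13 CPM at 168 h and 16.5, 8.39 and 11.1 CPM in untreated leaves (log2 fold change -0.68 ± 0.47). The remaining members did not pass either. Their log2 fold changes were 0.073 ± 0.25 for GAI, 0.13 ± 0.39 for RGL1, 2.96 ± 1.11 for RGL2, 0.95 ± 0.72 for RGL3, 0.13 ± 0.18 for SLY1, the F-box protein that removes DELLAs, -0.36 ± 0.19 for SPY and 0.46 ± 0.19 for SEC, and SNE was too low to test, with 5 reads at 168 h and 2 in untreated leaves. RGL2, a DELLA of seeds, had 26.6 and 2.52 CPM at 168 h, against 2.12, 2.4 and 1.06 CPM in untreated leaves, with library 1 alone far above the rest. RGA was not called without any 1 of the 5 libraries (log2 fold change 0.68 to 0.90). GID1C (0.86) was not called in a fit of these 5 libraries alone, nor was GID1C (0.34) without GA3 168 h library 2, nor was RGA (0.81) with no filter on low counts.

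Of the direct targets that DELLA proteins induce, 2 of 7 tested genes were called lower and 0 higher, and the median log2 fold change was -0.65. The share called lower over all tested genes was 16.1%. Beside GA3OX1 the one called was IQD22 (AT4G23060), a calmodulin-binding protein, with 2.65 and 0.869 CPM at 168 h, against 9.47, 15.5 and 15.8 CPM in untreated leaves (log2 fold change -2.94 ± 0.63, adjusted p = 0.00539). The level of the list was -0.96, -1.27 and -1.13 with GA3 at 24 h, 0.33, -0.71 and 0.13 with mock at 24 h and -0.22 and -0.38 with GA3 at 168 h. The GASA genes encode small peptides, several of them regulated by gibberellin, and of these 4 of 6 tested genes were called lower and 1 higher, and the median log2 fold change was -2.34. GASA14 (AT5G14920) had 0.252 and 2 CPM at 168 h, against 88.8, 51.7 and 71.4 CPM in untreated leaves (log2 fold change -5.97 ± 0.81, adjusted p = 0.000711). GASA4 (AT5G15230), which gibberellin induces, had 7.06 and 2.08 CPM at 168 h, against 16.3, 30.2 and 27.5 CPM in untreated leaves (log2 fold change -2.43 ± 0.62, adjusted p = 0.0124). GASA6 (AT1G74670) had 10.1 and 2.22 CPM at 168 h and 25.4, 80.9 and 71.9 CPM in untreated leaves (log2 fold change -3.27 ± 0.96). In these 3 genes, picked by small p, both 168 h libraries lay under the untreated range. GASA1 (AT1G75750) had 33 and 147 CPM at 168 h and 655, 387 and 248 CPM in untreated leaves (log2 fold change -2.25 ± 0.76), and GASA3 (AT4G09600) went up, with 0.631 and 0.434 CPM at 168 h and 0, 0 and 0.053 CPM in untreated leaves (5.59- to 1403-fold higher by the 95% counting interval). Of the DELLA target genes, 1 was called lower without GA3 168 h library 1. Of the GASA genes, 2 were called lower without GA3 168 h library 2 or without untreated library 2. GASA3 (adjusted p = 0.0718) and GASA1 (-1.54) were not called without GA3 168 h library 1, nor were IQD22 (-2.40), GASA4 (-1.85), GASA3 (adjusted p = 0.062) and GASA6 (-2.61) without GA3 168 h library 2, nor were GASA3 (adjusted p = 0.0581), GASA6 (-2.98) and GASA1 (-2.32) without untreated library 2. GASA6 (-3.11) was not called without untreated library 3, nor was GASA1 (-2.24) in a fit of these 5 libraries alone, nor was GASA1 (-2.06) with total counts as library size. GASA1 (-1.83) was not called without untreated library 1. GASA3 was 3.62- to 908-fold higher without untreated library 1, 3.62- to 909-fold higher without untreated library 2 and at least 8.03-fold higher without untreated library 3. For IQD22 (-3.96), GASA14 (-5.14), GASA4 (-3.57) and GASA6 (-4.75) the log2 fold change moved without GA3 168 h library 1, and for GASA14 (-8.14) and GASA1 (-3.75) without GA3 168 h library 2.

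Of the genes that promote flowering, 6 of 19 tested genes were called higher and 0 lower, where 15.1% of all tested genes were called higher. The median log2 fold change was 1.11. TSF (AT4G20370), the closest relative of FT, had 12.9 and 10 CPM at 168 h, against 0.62, 1.29 and 0.159 CPM in untreated leaves (log2 fold change 4.03 ± 0.92, adjusted p = 0.00731). GI (AT1G22770), a clock-linked activator of flowering, had 80.1 and 65.2 CPM at 168 h, against 6.59, 6.08 and 5.04 CPM in untreated leaves (log2 fold change 3.62 ± 0.43, adjusted p = 0.000513). TSF was higher in both 168 h libraries than in any other library of the series. SPL5 (AT3G15270), a factor that marks the adult phase and that gibberellin helps to induce, had 12.9 and 30.9 CPM at 168 h and 3.14, 3.24 and 5.04 CPM in untreated leaves (log2 fold change 2.53 ± 0.56), SPL10 (AT1G27370) had 20.6 and 14 CPM at 168 h and 6.02, 9.01 and 8.91 CPM in untreated leaves (log2 fold change 1.11 ± 0.28) and SPL11 (AT1G27360) had 20.6 and 10.1 CPM at 168 h and 3.54, 4.26 and 3.39 CPM in untreated leaves (log2 fold change 2.04 ± 0.44). Of the flowering-promoting genes, 3 were called higher without GA3 168 h library 1. SPL11 (1.43) and SPL10 (0.80) were not called without GA3 168 h library 1, nor was SPL5 (1.72) without GA3 168 h library 2. For TSF (4.83) the log2 fold change moved without untreated library 2.

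Floral repressors were not lower: 5 of 16 tested genes were called higher and 0 lower, where 15.1% of all tested genes were called higher. The median log2 fold change was 0.49. SVP (AT2G22540), a MADS factor that represses FT, had 142 and 155 CPM at 168 h, against 55, 79.6 and 72.5 CPM in untreated leaves (log2 fold change 1.10 ± 0.25, adjusted p = 0.00768). SNZ (AT2G39250), an AP2-type repressor, had 56.4 and 62.7 CPM at 168 h, against 7.88, 16.2 and 10.8 CPM in untreated leaves (log2 fold change 2.36 ± 0.46, adjusted p = 0.00342). Some genes that promote and some that repress flowering were thus higher. Of those tested, 13 promoting and 11 repressing genes were not called. SMZ (AT3G54990), the relative of SNZ, had 1.26 and 1.48 CPM at 168 h and 0.266, 0.577 and 0.318 CPM in untreated leaves (log2 fold change 1.80 ± 0.60), MAF1 (AT1G77080) had 54 and 51.7 CPM at 168 h and 38.3, 40.2 and 40.7 CPM in untreated leaves (log2 fold change 0.41 ± 0.13) and MAF5 (AT5G65080) had 1.01 and 0.912 CPM at 168 h and 0, 0 and 0 CPM in untreated leaves (at least 20.5-fold higher). Of the floral repressor genes, 3 were called higher with no filter on low counts or without untreated library 2, and 2 without GA3 168 h library 1, without untreated library 1 or without untreated library 3, and 1 without GA3 168 h library 2. MAF1 was not called without any 1 of the 5 libraries (log2 fold change 0.36 to 0.43). MAF5 was not called without any 1 of the 5 libraries. SVP (0.99) and SMZ (1.64) were not called without GA3 168 h library 2, nor were MAF1 (0.42) and SMZ (1.81) in a fit of these 5 libraries alone, nor were MAF1 (0.39) and SMZ (1.79) with no filter on low counts. SMZ (1.91) was not called without GA3 168 h library 1, nor was SMZ (1.57) without untreated library 1, nor was SMZ (1.69) without untreated library 3. SMZ (2.36) was not called with strand ignored.

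**Figure D4:**
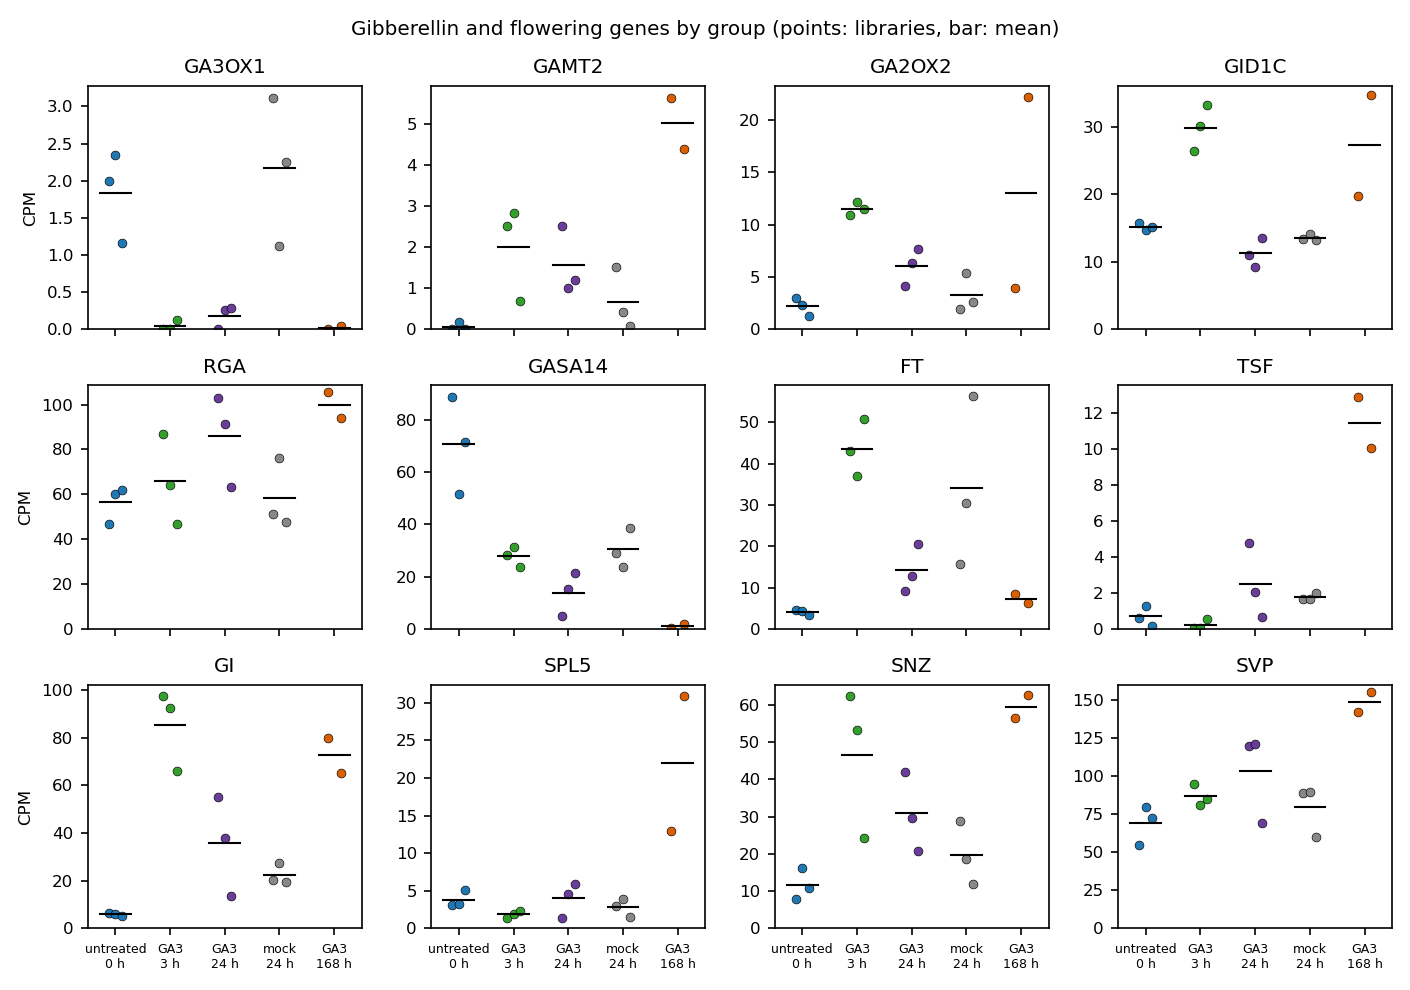
Each panel is a gene, with its CPM (y, linear from 0) in every library of the untreated, GA3 3 h, GA3 24 h, mock 24 h and GA3 168 h groups (x) and a bar for the group mean. GA3OX1 is at 0 and 0.0434 CPM at 168 h and TSF at 12.9 and 10 CPM, while FT stands at 8.41 and 6.3 CPM there, under every library of the GA3 3 h and mock groups.

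Of the morning genes of the circadian clock, 5 of 10 tested genes were called higher and 0 lower, and the median log2 fold change was 1.04. CCA1 (AT2G46830), a central morning factor, had 295 and 301 CPM at 168 h, against 106, 115 and 103 CPM in untreated leaves (log2 fold change 1.47 ± 0.26, adjusted p = 0.00212), and its partner LHY (AT1G01060) had 332 and 245 CPM at 168 h and 135, 129 and 114 CPM in untreated leaves (log2 fold change 1.20 ± 0.26). LNK1 (AT5G64170), a coactivator, had 300.2 and 294 CPM at 168 h and 59.9, 56.4 and 45 CPM in untreated leaves (log2 fold change 2.47 ± 0.26), and PRR9 (AT2G46790), a repressor of the day phase, had 68.3 and 28.7 CPM at 168 h and 3.45, 4.17 and 3.82 CPM in untreated leaves (log2 fold change 3.67 ± 0.80). Of the evening genes, 3 of 12 tested genes were called higher and 2 lower, and the median log2 fold change was 0.17. The shares over all tested genes were 15.1% higher and 16.1% lower. LUX (AT3G46640), of the evening complex, had 2.19 and 2.95 CPM at 168 h and 11.1, 7.28 and 8.33 CPM in untreated leaves (log2 fold change -1.79 ± 0.41). ZTL (AT5G57360), a blue-light receptor, had 77.3 and 77.3 CPM at 168 h and 46.8, 48.8 and 49.9 CPM in untreated leaves (log2 fold change 0.67 ± 0.16). The sources used here do not give the hour of day at sampling, and its part in these values was not tested. Of the evening clock genes, 1 was called lower in a fit of these 5 libraries alone, without GA3 168 h library 1, without GA3 168 h library 2 or without untreated library 3. LUX (-1.59) was not called without GA3 168 h library 1, nor was ZTL (0.63) without GA3 168 h library 2. For PRR9 (2.90) the log2 fold change moved without GA3 168 h library 1.

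Of the jasmonate list, 4 of 30 tested genes were called higher and 0 lower, and the median log2 fold change was 0.61, where 15.1% of all tested genes were called higher. JAZ12 (AT5G20900), a repressor of the pathway, had 198 and 221 CPM at 168 h and 70.1, 63.7 and 81.4 CPM in untreated leaves (log2 fold change 1.55 ± 0.24), and JAR1 (AT2G46370), which makes the active conjugate, had 87.5 and 81.1 CPM at 168 h and 47.1, 32 and 30.8 CPM in untreated leaves (log2 fold change 1.20 ± 0.25). Of the salicylic acid list, 3 of 20 tested genes were called higher and 0 lower, and the median log2 fold change was 1.25. CBP60G (AT5G26920), a factor that starts salicylic acid synthesis, had 57.9 and 69.3 CPM at 168 h and 15.5, 16.6 and 13.8 CPM in untreated leaves (log2 fold change 2.05 ± 0.49). PBS3 (AT5G13320), an enzyme of that synthesis, had 48.5 and 46.6 CPM at 168 h and 14.5, 1.02 and 3.39 CPM in untreated leaves (log2 fold change 2.91 ± 0.92). PR2 (AT3G57260), a glucanase used as a marker of the response, had 1891 and 287 CPM at 168 h, against 218, 41.9 and 67.3 CPM in untreated leaves (log2 fold change 3.32 ± 1.18, adjusted p = 0.05), just short of the threshold. The level of the list was 2.30 and 1.61 at 168 h, against 1.79, -1.09 and -0.50 in untreated libraries 1, 2 and 3, so untreated library 1 stood above its group. Of the wound, touch and pattern-triggered genes, 2 of 20 tested genes were called higher and 2 lower, and the median log2 fold change was 0.19. Over all tested genes 16.1% were called lower. TCH3 (AT2G41100), a calmodulin-like protein of touch, had 101 and 138 CPM at 168 h and 707, 422 and 844 CPM in untreated leaves (log2 fold change -2.46 ± 0.66), and FRK1 (AT2G19190), a receptor kinase of pattern-triggered immunity, had 17.2 and 29 CPM at 168 h and 7.97, 1.33 and 1.48 CPM in untreated leaves (log2 fold change 2.68 ± 0.82). Of the jasmonate genes, 2 were called higher without GA3 168 h library 1, without GA3 168 h library 2 or without untreated library 1. Of the salicylic acid genes, 1 was called higher in a fit of these 5 libraries alone, without GA3 168 h library 1, without untreated library 2 or without untreated library 3, and 5 with limma-voom, and 0 without GA3 168 h library 2, and 14 without untreated library 1. Of the wound, touch and pattern-triggered genes, 0 were called higher in a fit of these 5 libraries alone, without GA3 168 h library 2, without untreated library 2 or without untreated library 3, and 4 with DESeq2, and 1 without GA3 168 h library 1. Of the wound, touch and pattern-triggered genes, 1 was called lower with limma-voom, without untreated library 2 or without untreated library 3, and 0 without GA3 168 h library 1 or without GA3 168 h library 2. CBP60G (1.87), PBS3 (2.90), TCH3 (-2.74) and FRK1 (2.21) were not called without GA3 168 h library 2, nor were PBS3 (2.92) and FRK1 (2.69) in a fit of these 5 libraries alone, nor were PBS3 (2.89) and TCH3 (-2.26) without GA3 168 h library 1. PBS3 (2.41) and FRK1 (2.28) were not called without untreated library 2, nor were PBS3 (2.62) and FRK1 (2.31) without untreated library 3. For PBS3 (4.42) and FRK1 (4.01) the log2 fold change moved without untreated library 1.

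Of the ethylene genes, 2 of 13 tested genes were called higher and 0 lower, and the median log2 fold change was 0.12. Over all tested genes 15.1% were called higher and 16.1% lower, so the ethylene count of genes higher was near that share. EBF1 (AT2G25490), an F-box protein that limits the response, had 168 and 141 CPM at 168 h and 99.1, 86.7 and 99.3 CPM in untreated leaves (log2 fold change 0.70 ± 0.16), and ACS2 (AT1G01480), which makes the ethylene precursor, had 2.14 and 1.26 CPM at 168 h and 0.354, 0.0444 and 0.265 CPM in untreated leaves (log2 fold change 2.92 ± 1.03). Of the cytokinin response genes, 4 of 11 tested genes were called lower and 1 higher, and the median log2 fold change was -1.38. The A-type response regulator ARR4 (AT1G10470) had 58.1 and 23.8 CPM at 168 h and 138, 90.8 and 133 CPM in untreated leaves (log2 fold change -1.56 ± 0.33). ARR6 (AT5G62920) had 0.799 and 0 CPM at 168 h and 7.35, 6.92 and 17.7 CPM in untreated leaves (log2 fold change -4.70 ± 1.05). ARR7 (AT1G19050) had 4.29 and 0.304 CPM at 168 h and 13.1, 25.2 and 45.3 CPM in untreated leaves (log2 fold change -3.59 ± 0.89). All 3 were lower in both 168 h libraries, library 2 the lowest. Of the brassinosteroid genes, 5 of 11 tested genes were called lower and 2 higher, and the median log2 fold change was -0.74. BES1 (AT1G19350), a factor of the response, had 149.5 and 205 CPM at 168 h and 108, 93.1 and 91.4 CPM in untreated leaves (log2 fold change 0.86 ± 0.18), and the inactivating enzyme BAS1 (AT2G26710) had 0.378 and 0.521 CPM at 168 h and 2.17, 4.26 and 2.28 CPM in untreated leaves (log2 fold change -2.68 ± 0.75). Of the ethylene genes, 1 was called higher with limma-voom, with no filter on low counts, without GA3 168 h library 2, without untreated library 1, without untreated library 2 or without untreated library 3, and 0 without GA3 168 h library 1. Of the cytokinin response genes, 2 were called lower in a fit of these 5 libraries alone or without GA3 168 h library 2. Of the brassinosteroid genes, 3 were called lower with limma-voom, and 2 with total counts as library size, and 0 without GA3 168 h library 1 or without GA3 168 h library 2. ACS2 was not called without any 1 of the 5 libraries (log2 fold change 2.43 to 3.45). EBF1 (0.57) and BAS1 (-2.47) were not called without GA3 168 h library 1, nor were ACS2 (3.13) and BAS1 (-2.60) with limma-voom, nor was ACS2 (2.91) with no filter on low counts. ARR7 (-2.74), BES1 (0.57) and BAS1 (-2.97) were not called without GA3 168 h library 2, nor was BAS1 (-2.29) without untreated library 2, nor were ARR4 (-1.55) and ARR7 (-3.59) in a fit of these 5 libraries alone. For ARR4 (-2.34), ARR6 (-10.82) and ARR7 (-6.50) the log2 fold change moved without GA3 168 h library 1, and for ARR6 (-3.77) without GA3 168 h library 2.

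**Figure D5:**
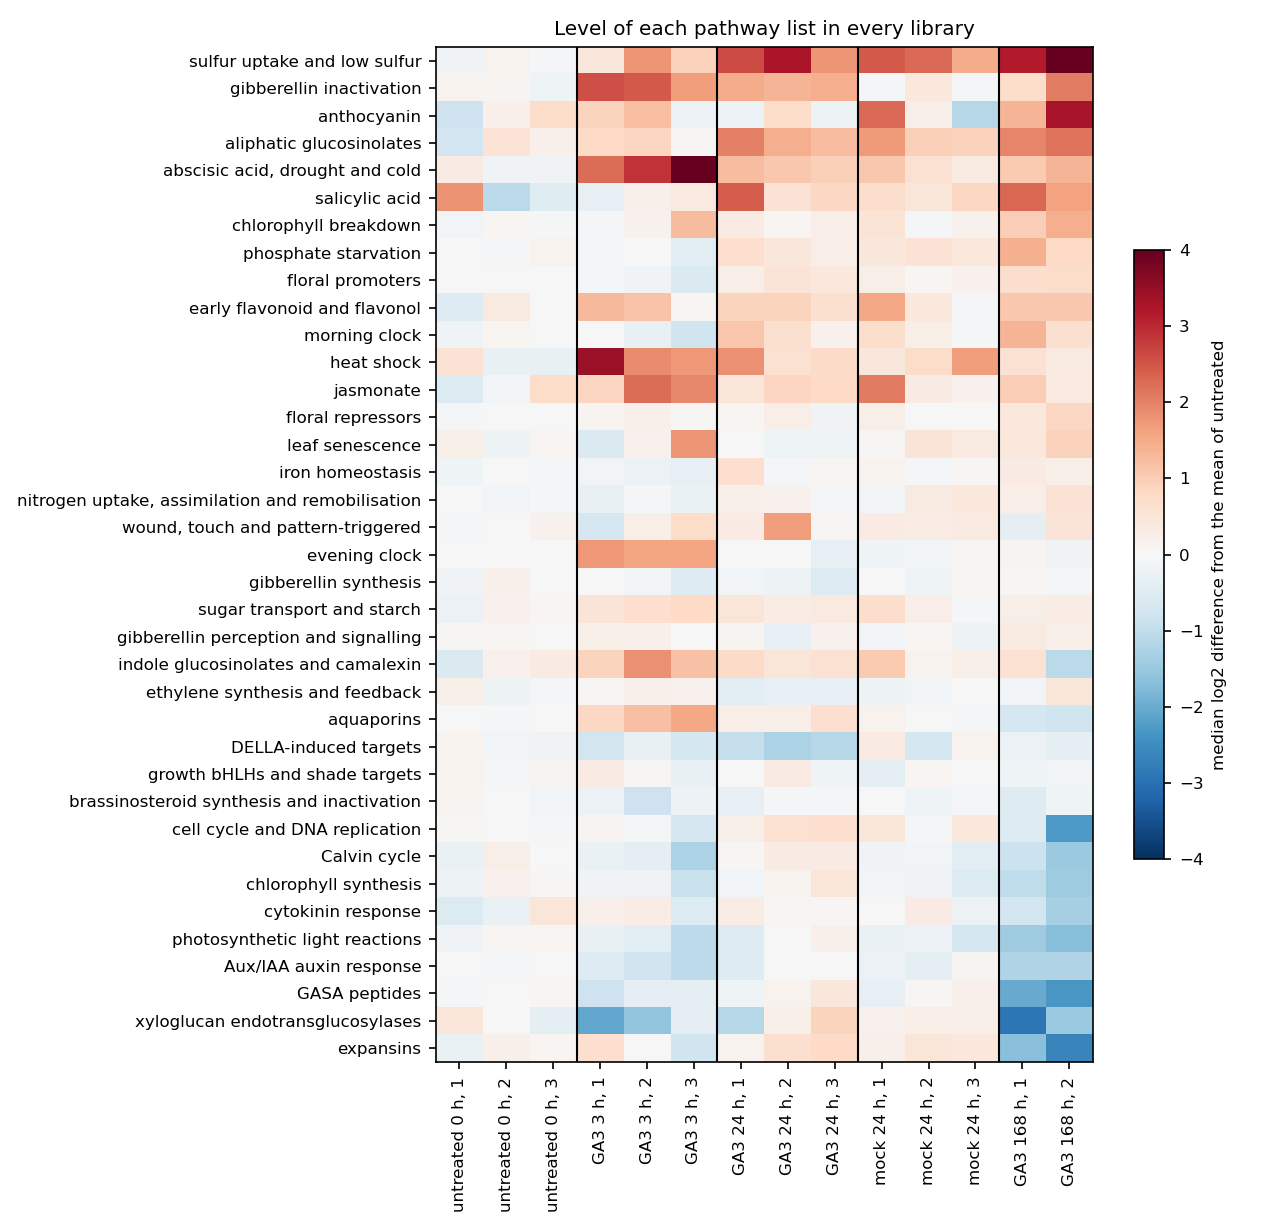
Each row is a pathway list and each column a library, by group, coloured by the median over the list's genes of the difference in log2(CPM + 0.5) from the untreated mean (colour scale from -4 to 4). The sulfur list is at 3.18 and 4.15 with GA3 at 168 h and 2.46, 2.26 and 1.49 with mock at 24 h, and the light reactions are at -1.42 and -1.69 with GA3 at 168 h and -0.28, -0.23 and -0.70 with mock at 24 h.

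Marker genes were read to see which cells the leaves held, and in such bulk samples fewer cells of a type and less RNA per cell cannot be told apart. The 8 epidermal markers summed to 743 and 689.6 CPM at 168 h, against 1163, 2047 and 2151 CPM in untreated leaves. All 8 had a log2 fold change under 0 and 6 were called lower, where 16.1% of all tested genes were. Among the 6 was ATML1 (AT4G21750), a homeobox factor that specifies the epidermis. It had 15.8 and 18.7 CPM at 168 h and 49.7, 62.4 and 73 CPM in untreated leaves (log2 fold change -1.84 ± 0.21). FDH (AT2G26250), which makes long-chain lipids of the cuticle, had 82.4 and 83.7 CPM at 168 h and 195, 316 and 339 CPM in untreated leaves (log2 fold change -1.77 ± 0.32). The xylem markers summed to 51.5 and 16.4 CPM at 168 h, against 168, 105 and 142 CPM in untreated leaves. All 9 tested had a log2 fold change under 0 and 8 were called lower. XCP1 (AT4G35350), a protease of dying vessel cells, had 5.21 and 1.87 CPM at 168 h and 25.6, 23 and 32 CPM in untreated leaves (log2 fold change -2.92 ± 0.43). Both cell types had lower sums in each 168 h library than in any untreated library. The phloem markers summed to 1173 and 1516 CPM at 168 h, against 1231, 1422 and 1237 CPM in untreated leaves. Of 9 tested, 5 had a log2 fold change above 0 and 4 under 0. Of these 1 was called higher, where 15.1% of all tested genes were, and 3 were called lower. SEOR1 (AT3G01680), which builds the filaments of sieve elements, had 9.21 and 11.6 CPM at 168 h and 69.1, 61.6 and 67.7 CPM in untreated leaves (log2 fold change -2.67 ± 0.32). The guard cell markers summed to 75.1 and 153 CPM at 168 h, against 59.7, 59.4 and 50.1 CPM in untreated leaves, where KAT1 (AT5G46240), a potassium channel of guard cells, had 51.3 and 125 CPM at 168 h and 19.5, 16 and 10.8 CPM in untreated leaves (log2 fold change 2.51 ± 0.40). Without KAT1 the guard cell sum was 23.8 and 28 CPM at 168 h, against 40.1, 43.4 and 39.2 CPM in untreated leaves. Of 8 tested guard cell genes 6 had a log2 fold change under 0, the median was -0.68, and HT1 (AT1G62400), a kinase of the stomatal response to carbon dioxide, was called lower, with 2.02 and 1.74 CPM at 168 h and 5.44, 4.97 and 4.3 CPM in untreated leaves (log2 fold change -1.38 ± 0.37). The trichome markers summed to 112 and 159 CPM at 168 h, against 118, 104 and 112 CPM in untreated leaves. Markers of other organs were low. Those of the shoot meristem summed to 1.3 and 2.61 CPM at 168 h, against 9.65, 3.77 and 5.09 CPM in untreated leaves, those of floral organs to 14 and 18 CPM at 168 h, against 9.47, 17.9 and 16.1 CPM in untreated leaves, those of seeds to 1.05 and 1.52 CPM at 168 h, against 0.664, 0.311 and 0.636 CPM in untreated leaves and those of roots to 1.89 and 1.26 CPM at 168 h, against 13, 4.39 and 6.84 CPM in untreated leaves. These sums depended on their highest gene. Without ANT the meristem sum was 0.505 and 2.3 CPM at 168 h, against 2.3, 0.178 and 1.27 CPM in untreated leaves. Without SEP4 the floral sum was 1.89 and 2.56 CPM, against 0.885, 1.33 and 1.33 CPM. Without FUS3 the seed sum was 0 and 0 CPM, against 0.221, 0 and 0 CPM. Without BGLU23 the root sum was 1.14 and 1.26 CPM, against 0.133, 0.133 and 0.106 CPM, so its direction turned. In the 5 libraries MUTE, GIS2, CLV3, WUS, UFO, STK, CRU3, OLEO1, OLEO2, LEC1, ABI3, EXPA7, COBL9, CASP1 and RSL4 had no read. The part of these shifts in the results for other genes was not tested. Of the epidermal marker genes, 3 were called lower without GA3 168 h library 1 or without GA3 168 h library 2. Of the xylem marker genes, 3 were called lower in a fit of these 5 libraries alone or without GA3 168 h library 2, and 5 without untreated library 1. Of the phloem marker genes, 0 were called higher in a fit of these 5 libraries alone, without GA3 168 h library 1, without GA3 168 h library 2 or without untreated library 3, and 2 with total counts as library size. HT1 (-1.32) was not called without GA3 168 h library 2, nor was HT1 (-1.50) without GA3 168 h library 1. For KAT1 (1.69) the log2 fold change moved without GA3 168 h library 2, and for XCP1 (-3.85) without GA3 168 h library 1.

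The 168 h leaves were also set against leaves 24 h after the same GA3 needle, a comparison of late with early that shares the 168 h libraries with the one above. Of 20077 genes 2067 were higher at 168 h (10.3%) and 2789 lower (13.9%). They numbered 177 and 721 without GA3 168 h library 2, 1472 and 2335 without library 1, 865 and 1785 without GA3 24 h library 3, 1091 and 1991 without GA3 24 h library 2, 3972 and 2160 with total counts as library size (64.8% higher, against 42.6%), and 717 and 1379 in a fit of these 2 groups alone. Of the light-reaction genes, 28 of 28 were lower and 0 higher (median log2 fold change -1.49). Of the expansins, 10 of 17 were lower and 0 higher (median log2 fold change -2.65). Of the Calvin cycle genes, 14 of 18 were lower and 0 higher (median log2 fold change -1.36). The photosynthetic and wall genes were thus lower at 168 h than at 24 h of the same needle. AT2G10940 had 0.042 and 0.174 CPM at 168 h, against 375, 833 and 1773 CPM at 24 h (log2 fold change -13.10 ± 1.27, adjusted p = 0.000558). TIP2;1 had 10.3 and 9.9 CPM at 168 h, against 178, 406 and 1039 CPM at 24 h (log2 fold change -5.74 ± 0.66, adjusted p = 0.000887). LHCB1.3 had 2548 and 2258 CPM at 168 h, against 7659, 13349.5 and 15813 CPM at 24 h (log2 fold change -2.35 ± 0.35, adjusted p = 0.00188). Of the sulfur genes, 5 of 16 were higher and 0 lower (median log2 fold change 1.01). Of the aliphatic glucosinolates, 2 of 15 were higher and 0 lower (median log2 fold change 0.59). Of the genes of abscisic acid, drought and cold, 2 of 27 were higher and 1 lower (median log2 fold change 0.78). APR1 had 476 and 579 CPM at 168 h, against 374, 521 and 259 CPM at 24 h (log2 fold change 0.46 ± 0.40, adjusted p = 0.422), and RD20 had 1033 and 1405 CPM at 168 h, against 648, 375 and 501 CPM at 24 h (log2 fold change 1.26 ± 0.62, adjusted p = 0.153), so neither passed the test between the needle times. GA3OX1 did not pass either, with 0 and 0.0434 CPM at 168 h, against 0, 0.262 and 0.288 CPM at 24 h (adjusted p = 0.196). PAP1 had 30.5 and 72.1 CPM at 168 h, against 3.3, 1.89 and 1.01 CPM at 24 h (log2 fold change 4.63 ± 0.94, adjusted p = 0.006), and NAP had 83.6 and 146 CPM at 168 h, against 16.9, 13.3 and 9.07 CPM at 24 h (log2 fold change 3.13 ± 0.35, adjusted p = 0.000851). Of the photosynthetic light reactions genes, 16 were called lower in a fit of the GA3 168 h and GA3 24 h libraries alone, and 7 without GA3 168 h library 2. Of the expansin genes, 1 was called lower without GA3 168 h library 2. Of the Calvin cycle genes, 6 were called lower without GA3 168 h library 2. Of the sulfur genes, 2 were called higher in a fit of the GA3 168 h and GA3 24 h libraries alone, without GA3 168 h library 1 or without GA3 24 h library 3, and 8 with total counts as library size, and 0 without GA3 168 h library 2, and 1 without GA3 24 h library 1. Of the aliphatic glucosinolate genes, 4 were called higher with total counts as library size, and 1 without GA3 168 h library 1, without GA3 168 h library 2, without GA3 24 h library 2 or without GA3 24 h library 3. Of the abscisic acid, drought and cold genes, 0 were called higher in a fit of the GA3 168 h and GA3 24 h libraries alone or without GA3 168 h library 2, and 4 with DESeq2, and 1 with RLE size factors, with no filter on low counts, without GA3 168 h library 1, without GA3 24 h library 2 or without GA3 24 h library 3, and 5 with total counts as library size. Of the abscisic acid, drought and cold genes, 3 were called lower with DESeq2, and 0 without GA3 168 h library 2, and 2 without GA3 24 h library 1. PAP1 (3.84) was not called without GA3 168 h library 2. For AT2G10940 (-14.38) the log2 fold change moved without GA3 168 h library 2, and for AT2G10940 (-12.44) without GA3 168 h library 1, and for AT2G10940 (-12.39) and TIP2;1 (-4.85) without GA3 24 h library 3.

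Promoter letters were counted over the 19433 tested protein-coding genes with a RefSeq TAIR10.1 promoter of 300 bases, on both strands and without regard to overlap with other motifs. GATAAG, known as the I-box of light-regulated genes, was found in 15 of 28 light-reaction promoters (53.6%), in 16.5% of promoters of genes called lower, in 14.5% of those called higher and in 14.9% of all. Promoters of 2 light-reaction genes are printed with GATAAG or its complement CTTATC in capitals (RefSeq TAIR10.1, 5′ to 3′ on the strand of the gene).
PSAK: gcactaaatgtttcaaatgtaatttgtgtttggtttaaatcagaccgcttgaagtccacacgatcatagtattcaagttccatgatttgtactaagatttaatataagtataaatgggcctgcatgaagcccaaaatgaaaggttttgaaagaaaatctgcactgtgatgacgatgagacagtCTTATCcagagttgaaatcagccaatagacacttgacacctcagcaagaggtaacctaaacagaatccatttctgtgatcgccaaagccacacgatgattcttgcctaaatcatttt
LHCB6: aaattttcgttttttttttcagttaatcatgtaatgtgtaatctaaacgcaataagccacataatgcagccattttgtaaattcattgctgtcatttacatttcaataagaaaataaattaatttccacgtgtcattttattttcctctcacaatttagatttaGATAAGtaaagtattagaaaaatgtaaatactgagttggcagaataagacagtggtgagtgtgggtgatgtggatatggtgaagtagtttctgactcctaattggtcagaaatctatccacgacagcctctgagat
PSAK is read from chr1:10721933-10722232, plus strand, and LHCB6, a minor antenna protein of photosystem II, from chr1:5447831-5448130, minus strand. Each holds 1 match. In the same window the promoter of LHCB1.3 holds 0 matches and that of LHCB4.1 holds 1. The G-box CACGTG was found in 7.87% of promoters of genes called lower, 11.2% of those called higher and 8.98% of all. The W-box core TTGAC was found in 46.5% of those called lower, 52.9% of those called higher and 51.1% of all. TAACAAA, a gibberellin-responsive element of cereal amylase promoters, was found in 18.8%, 19.7% and 18.3% of the same sets, and the evening element AAAATATCT in 2.98%, 3.12% and 3.01%. These shares describe letters in a window and carry no test.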

How the data were processed

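Total RNA of ft-10 rosette leaves was sequenced, and the authors deposited raw counts of reads per gene in a file for each library, with reads aligned by STAR 2.7.7a to TAIR10, per the submitters' processing notes. The sources used here do not name the gene annotation. The files held 34218 genes each and 4 summary lines that name no gene, and 88.8% to 95.8% of reads were counted in genes. Column 4, the strand with most reads, was used. Counts were tested with edgeR 4.0.16 in R 4.3.3 (quasi-likelihood F test, TMM factors, filterByExpr by group, all 14 libraries in 5 groups, Benjamini-Hochberg adjustment over 20077 genes, threshold 0.05). The standard error of a log2 fold change is its size divided by the square root of F. CPM scales counts to the library's total in tested genes times its TMM factor. Intervals and floors use the same scaling and cover counting error only. Alternatives used RLE factors, total counts, nuclear genes alone, DESeq2 1.42.0, limma-voom (limma 3.58.1), other filters, strand ignored, the 2 groups alone, a replicate block and each library left out. The test was tried on simulated data. Gene names come from a RefSeq table of assembly TAIR10.1, in which 32548 of the genes were found, and promoters from its genome. Genes are named by these rules: the 12 largest rises and 12 largest falls among called genes with a symbol, non-overlapping groups and a higher group averaging 5 CPM or more; 3 each without a symbol; FT; up to 5 members with the smallest p of each list; and all gibberellin genes. The members and the 46 lists were chosen with earlier results of these data known.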

Additional observations from a re-analysis of the deposited data

How the results depend on the processing

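Each called gene that the text names kept its direction under the alternatives run, while the number of calls moved. For GA3 168 h against untreated, leaving out 1 library gave 1181 to 3071 genes higher and 1330 to 3271 lower, and a fit of these 2 groups alone gave 2091 lower. For GA3 168 h against GA3 24 h, leaving out 1 library gave 177 to 2325 higher and 721 to 3000 lower, the 2 groups alone gave 717 higher and 1379 lower, and total counts as library size gave 3972 higher. The cause of these moves was not tested.

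Among named genes that did not pass the test, the sign of the log2 fold change turned when 1 library was left out, with ranges of -0.34 to 0.48 for CPS, -0.037 to 0.99 for KS, -0.031 to 0.37 for KAO1, -0.83 to 1.41 for GA3OX2, -0.072 to 0.17 for GAI, -0.18 to 0.32 for RGL1, -0.054 to 0.25 for SLY1, -0.019 to 1.06 for ZFP8, -3.35 to 0.17 for KNAT6 and -0.21 to 0.24 for SEP4. KAO2 stood at 0.094 with total counts as library size and GA3OX2 at -0.031 with strand ignored. Of 199 called genes that the naming rules cover, not all of them printed, 74 were not called without GA3 168 h library 2 and 46 without library 1, and none changed sign.

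The groups share replicate numbers, but nothing shows that these pair the samples. The deviations of number 1 correlated at -0.191 and those of number 2 at -0.139. The 2 libraries at 168 h deviate from their mean by equal and opposite amounts. These values are therefore not independent and cannot decide whether the samples are paired. With a replicate block, 2631 genes were higher and 2809 lower in 168 h against untreated leaves, 1806 and 2514 against GA3 24 h, 14 of those 199 calls ended, and CPS stood at -0.15. Among the genes in the text these calls were RGA (adjusted p = 0.0867), GASA1 (0.0507), GASA6 (0.0618), XTH17 (0.0573), MAF1 (0.0626), SMZ (0.0755), MYB114 (0.0522) and TT19 (0.0896). With 2 libraries at 168 h, genes near the threshold and genes of a few reads are the least certain.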
